A study of Mus musculus with 15 samples.

Results

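Mature macrophages grown from mouse bone marrow were kept for 48 h with interleukin 4 (IL4) or without it, and the response was measured across all genes. These cells make up 6 of the 15 libraries of the series, 3 unstimulated and 3 with IL4, chosen by the sample names in the table of read counts that holds only this comparison. The cells came from male C57BL/6 mice of 8 to 10 weeks. They spent 1 day in 0.6 ng/ml of the macrophage growth factor CSF-1 with 15% fetal calf serum, 2 days in 12 ng/ml with 10% serum and 7 days in 120 ng/ml. Both groups then stayed in 120 ng/ml CSF-1 for 48 h, and the treated group also received 20 ng/ml IL4. Every unstimulated and every treated sample was therefore under CSF-1. Each group holds libraries of mice numbered 1 to 3. The other 9 libraries of the series, 3 each of marrow precursors, immature macrophages and mature macrophages, were used to set the response beside the change of the same genes during maturation.

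IL4 is a cytokine of T helper 2 cells, mast cells and eosinophils. On macrophages it binds the receptor chain encoded by Il4ra together with the common gamma chain or the IL13 receptor chain Il13ra1, and Janus kinases bound to these chains phosphorylate the transcription factor STAT6. STAT6 then binds DNA as a dimer and turns on genes of what is called alternative activation, a state known from parasite infection, tissue repair and the fusion of macrophages into giant cells. Its textbook markers in the mouse are arginase 1 (Arg1), resistin-like alpha (Retnla), the chitinase-like protein Chil3 and the mannose receptor (Mrc1).

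The unstimulated libraries held 2408531 to 4214266 reads in genes and the IL4 libraries 3065288 to 3876666. The macrophage gene Cd68, for a lysosomal membrane protein, was read strongly in all 6 libraries. It had 3783, 2837 and 2459 CPM without IL4 and 3609, 2671 and 2821 CPM with it. Not all macrophage genes held their level, and of 23 tested genes of macrophage identity 10 fell and 5 rose, as given below. Counts scaled to a common library total (CPM, with the total set by TMM scaling) carry no correction for gene length, so a CPM is compared between libraries for 1 gene and not between genes. On log2 CPM the first principal component held 73.4% of the variance and separated the groups, and the next held 13.7% and separated both libraries of mouse 1 from the rest. Of 7652 genes that reached 10 CPM in every library of mature macrophages of the other table and are listed in this one, 477 (6.23%) had 0 reads in all 6 libraries. Among them are genes every cell uses and that have near-identical copies elsewhere in the genome, such as Rpl3, Prdx1 and Rhoa. Chil3 (under its older symbol Chi3l3), Socs1, Ccl17 and Isg15 are likewise listed at 0 in all 6, which says nothing of their expression.

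A total of 8936 genes were tested with edgeR's quasi-likelihood test, and 1855 (20.8%) were called, that is, had a Benjamini-Hochberg adjusted p under 0.05. IL4 raised 937 genes (10.5%) and lowered 918 (10.3%), and the median log2 fold change of all genes tested was 0.0062. At least 2-fold changes were called for 587 genes that rose (6.57%) and 605 that fell (6.77%). The directions were uneven among strong changes, where 133 genes rose and 63 fell at least 8-fold, and 89 rose and 28 fell at least 16-fold. The median called change was 2.30-fold up and 2.31-fold down. Genes whose 3 IL4 libraries all lay above the 3 unstimulated ones made up 18.4% of genes tested, and 17.4% lay wholly below. Of the called genes, 926 of 937 and 909 of 918 had such groups without overlap. In a fit that compared libraries of the same mouse number (a replicate block) 1447 genes rose (16.2%) and 1436 fell (16.1%), and these held all 1855 calls made without it. The authors' deposited list of changed genes held 1863 genes, of which 1649 were called here.

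**Figure D1:**
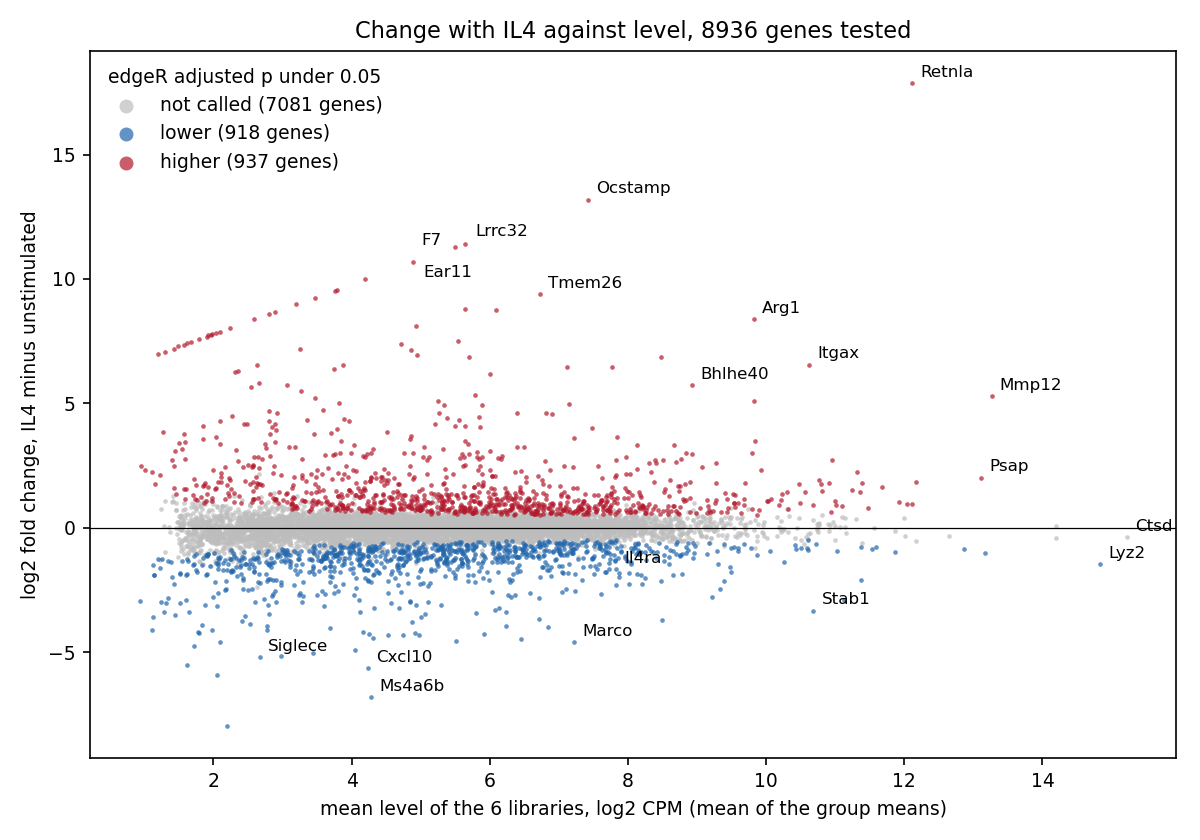
Change with IL4 (log2 fold change, IL4 minus unstimulated, vertical axis) against the mean level of the 6 libraries (log2 CPM, horizontal axis) for the 8936 genes tested, with the 937 genes that rose in red and the 918 that fell in blue. The points in a straight line at the upper left are genes with 0 reads in all unstimulated libraries, whose fitted fold change depends on a small added count and is no bound.

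The strongest response was the appearance of transcripts that the unstimulated libraries lacked. Of the tested genes, 11 had 0 reads in all 3 unstimulated libraries and at least 10 CPM in every IL4 library, and no gene showed the reverse. Retnla (ENSMUSG00000061100, chr16:48842552-48844461, + strand), a secreted protein of the resistin family, had 18663, 4740.3 and 3116 CPM with IL4. Its share of reads in the treated library of mouse 1 was far above that of the other treated libraries, and all of them lay above the unstimulated level of 0. Where a group had 0 reads, a fold was computed from the pooled reads of the other group against 3 reads over the empty one (0.279 CPM for the unstimulated libraries), so it is a lower bound. Retnla rose at least 34183-fold (edgeR adjusted p = 3.51e-05), and at least 14059-fold without IL4 library 1. Leaving out unstimulated library 1 or 3 lowers each such bound, to as little as 0.603 of its value.

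Sequences upstream of the strongest responders were read for the palindromic motif that STAT6 is known to bind, TTC, any 4 bases and GAA, which reads the same on both strands. RefSeq windows of 300 bases on GRCm38.p6, from 250 before to 50 after a gene's start, were at hand for 8 of the 12 genes with the highest log2 fold changes. It was in 3 of the 8, and the form with 3 bases between TTC and GAA, the spacing of other STAT proteins, was in 0 of them. The sequences show where the motif, in capitals, lies in Retnla (chr16:48842359-48842551, + strand) and Tmem26 (chr10:68723496-68723745, + strand), up to the start of the gene in the deposited table. The third gene is Edn1 (chr13:42301291-42301300, + strand), where the motif lies inside the gene's span in that table and only the motif is shown.
Retnla: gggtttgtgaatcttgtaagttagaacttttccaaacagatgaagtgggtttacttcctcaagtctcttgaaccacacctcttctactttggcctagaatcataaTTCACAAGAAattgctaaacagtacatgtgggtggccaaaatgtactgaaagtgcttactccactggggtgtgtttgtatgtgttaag
Tmem26: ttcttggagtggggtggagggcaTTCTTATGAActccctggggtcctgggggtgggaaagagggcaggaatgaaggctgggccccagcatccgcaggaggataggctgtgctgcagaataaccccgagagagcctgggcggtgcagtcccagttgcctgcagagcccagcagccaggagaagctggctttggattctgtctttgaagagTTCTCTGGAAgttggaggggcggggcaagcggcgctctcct
Edn1: TTCTGGAGAA
The motif began 145 bases before the RefSeq start of Retnla, 185 before that of Edn1, and 227 and 41 before that of Tmem26. The form with 4 bases was in a window of 8.01% of all 27025 genes with one, 6.49% of the 6583 tested genes, 7.91% of 695 genes that rose and 6.20% of 677 that fell. Among genes that changed at least 8-fold it was in 11 of 90 that rose (12.2%) and 2 of 47 that fell (4.26%). The form with 3 bases was in 9.55%, 8.26%, 6.76% and 8.86% of the same first 4 sets, and in 8.89% and 8.51% of the last pair. A match is a description of the sequence and no sign of binding.

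The other 10 genes of this kind differ in what they do. Ocstamp, which with Dcstamp is needed for the fusion of macrophages and osteoclasts, had 315, 385 and 326 CPM with IL4 and 0 reads without it, a rise of at least 1219-fold. Lrrc32, the surface anchor of latent TGF-beta, had 117, 111 and 71.1 CPM (at least 361-fold). Coagulation factor VII (F7) had 99.9, 86.7 and 84 CPM (at least 325-fold). None of the 3 genes had a read in any unstimulated library. Ear11, a ribonuclease of the eosinophil-associated family, had 78.5, 56.9 and 42.8 CPM (at least 218-fold). The vasoconstrictor peptide gene Edn1 had 54.1, 31.1 and 25 CPM (at least 136-fold) and Ppp1r3c, which targets a phosphatase to glycogen, had 34.5, 22.8 and 25.7 CPM (at least 101-fold). Alpha tubulin Tuba8 (13.9, 35.7 and 31.6 CPM) and the transcriptional corepressor Hr (19, 11.6 and 24.4 CPM) were at a similar number of reads. Hebp2 and Il1rl2, a receptor chain for IL36, also had 0 reads without IL4 and rose at least 53.0-fold and 50.1-fold. The edgeR adjusted p of each gene named in this paragraph was under 0.05.

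Other genes among the highest had low read counts or 0 reads without IL4. Tmem26, a membrane protein known as a marker of beige fat cells, had 0.235, 0.824 and 0 CPM without IL4 and 221, 202 and 212 CPM with it. Its pooled reads rose 760.2-fold, with a 95% counting interval of 259.8 to 3689. The scaffold protein gene Slc9a3r2 had 0, 0.412 and 0.247 CPM without IL4 and 138, 99.3 and 61.6 CPM with it, and its pooled reads rose 550.1-fold, with a 95% counting interval of 152 to 4549. Metallothionein 3 (Mt3) had 0 reads without IL4 and 28.1, 29.1 and 9.22 CPM with it, so it rose at least 80.8-fold. Arg1 (ENSMUSG00000019987, chr10:24915208-24927470, - strand), the enzyme that splits arginine into urea and ornithine, had 1.17, 2.06 and 12.1 CPM without IL4 and 1647, 1869.9 and 1896 CPM with it (log2 fold change 8.38, SE 0.59, edgeR adjusted p = 6.11e-06). Its 3 treated libraries differed little, while unstimulated library 3 stood above the other two. Arg1 changed by 10.18 without unstimulated library 3 on the log2 scale. Tmem26 had a pooled fold of 1766 without unstimulated library 2 and 473 without unstimulated library 3. Slc9a3r2 had a pooled fold of 332 without unstimulated library 1 and 852 without unstimulated library 2.

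**Figure D2:**
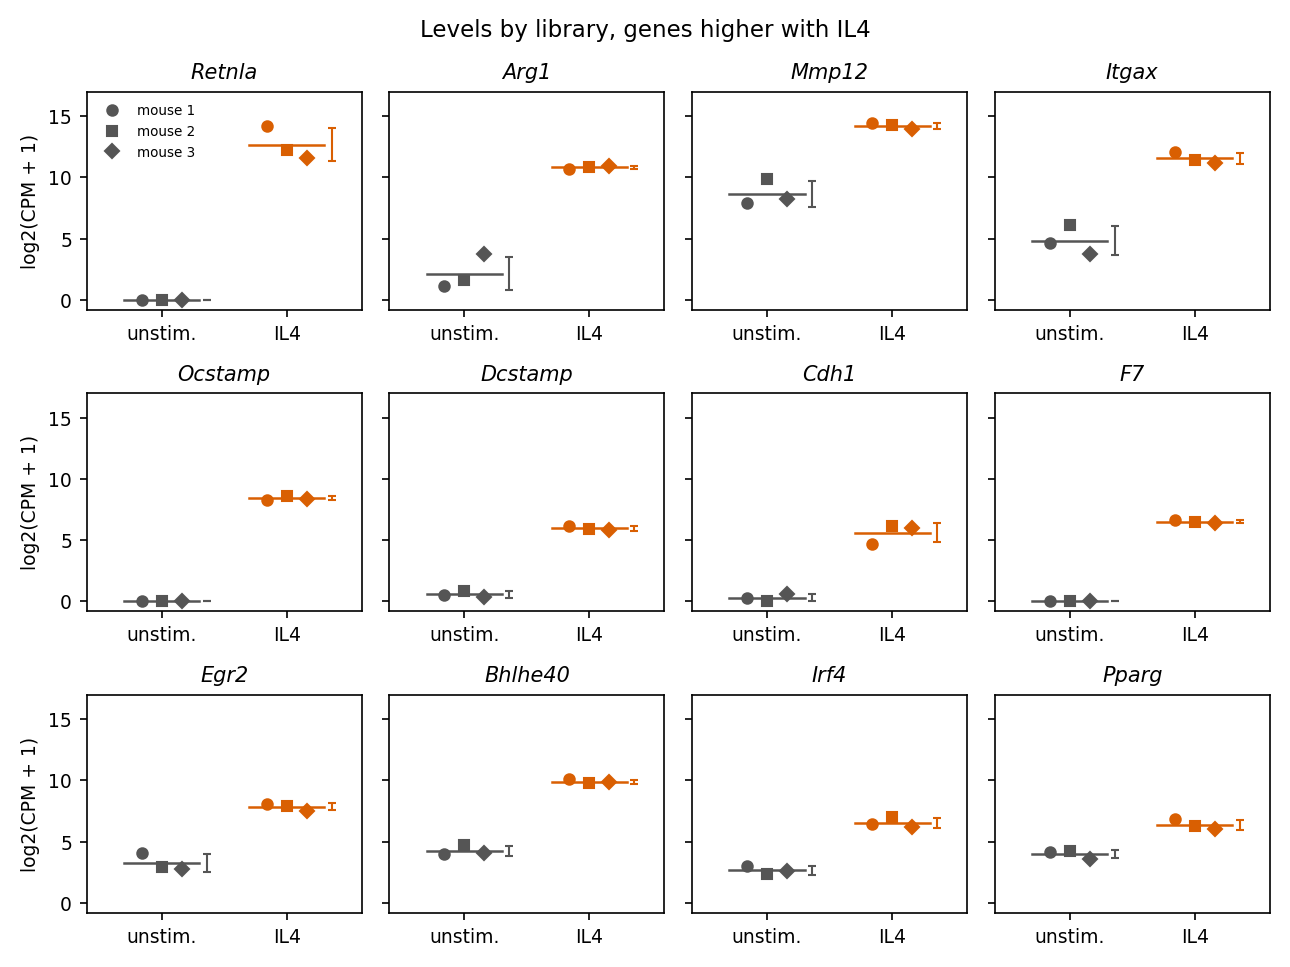
Level in each library, as log2(CPM + 1) on the vertical axis, of 12 genes that rose with IL4, with 1 symbol for each mouse number, a horizontal line at the group mean and a bar of 1 SD (n = 3). Retnla, Ocstamp and F7 are at 0 in all unstimulated libraries, and in none of the 12 genes do the groups overlap.

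The 12 genes with the largest falls included surface receptors, interferon-induced genes and a lipid enzyme. Ms4a6b (ENSMUSG00000024677, chr19:11516512-11531256, + strand), a membrane protein of the MS4A family found on monocytes and macrophages, had 40.4, 32.6 and 43.2 CPM without IL4 and 0.268, 0.331 and 0.329 CPM with it, and its pooled reads fell 129-fold, with a 95% counting interval of 44 to 630.2. The interferon-induced chemokine Cxcl10 had 74.9, 18.5 and 17.8 CPM without IL4 and 0.803, 0.662 and 0.658 CPM with it (log2 fold change -5.65, SE 0.76, edgeR adjusted p = 3.65e-04). Unstimulated library 1 was well above the others, and its treated values were alike. Siglece, an inhibitory sialic acid receptor, had 19, 9.89 and 8.38 CPM without IL4 and 0.536, 0.331 and 0 CPM with it, and its pooled reads fell 42.2-fold, with a 95% counting interval of 14.2 to 207. Tmem176b, a membrane protein of myeloid cells, had 34.5, 5.36 and 6.17 CPM without IL4 and 1.07, 0 and 0 CPM with it (log2 fold change -5.18, SE 1.06, edgeR adjusted p = 0.00506). Fads2, the delta-6 desaturase of polyunsaturated fatty acid synthesis, had 25.6, 9.48 and 28.4 CPM without IL4 and 0, 1.65 and 0.329 CPM with it (log2 fold change -5.05, SE 0.66, edgeR adjusted p = 3.04e-04). In both genes the groups did not overlap, and libraries of the same group differed several-fold. Marco, a scavenger receptor for bacteria and particles, had 542, 165 and 155 CPM without IL4 and 12.9, 14.6 and 7.9 CPM with it (log2 fold change -4.6, SE 0.51, edgeR adjusted p = 1.04e-04), with unstimulated library 1 highest. Cxcl10 changed by -4.59 without unstimulated library 1, Tmem176b changed by -8.76 without IL4 library 1 and -3.72 without unstimulated library 1 and Fads2 changed by -4.41 without IL4 library 1 and -6.88 without IL4 library 2 on the log2 scale. Marco changed by -3.76 without unstimulated library 1 on the log2 scale. Siglece had a pooled fold of 78.4 without IL4 library 1.

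Further strong falls were seen in Marcksl1, a protein that binds actin and calmodulin, at 276, 96 and 128 CPM without IL4 and 6.96, 6.29 and 9.55 CPM with it (log2 fold change -4.46, SE 0.41, edgeR adjusted p = 3.28e-05). Irg1 (also called Acod1), the enzyme that makes itaconate in activated macrophages, had 140.3, 21 and 18.7 CPM without IL4 and 4.28, 1.32 and 3.29 CPM with it (log2 fold change -4.31, SE 0.84, edgeR adjusted p = 0.00375). The integrin alpha 8 gene, Itga8, had 45.1, 66.3 and 41.7 CPM without IL4 and 0.803, 1.99 and 4.94 CPM with it (log2 fold change -4.33, SE 0.43, edgeR adjusted p = 4.95e-05). Groups did not overlap for any of the 3 genes. F13a1, the transglutaminase subunit of coagulation factor XIII and a textbook marker of alternatively activated human macrophages, had 8.21, 4.95 and 100.1 CPM without IL4 and 0.536, 0.331 and 4.61 CPM with it (log2 fold change -4.43, SE 1.2, edgeR adjusted p = 0.0231). It was far higher in both libraries of mouse 3 than in the others of the same group. Irg1 changed by -2.69 without unstimulated library 1, Itga8 changed by -5.2 without IL4 library 3 and F13a1 changed by -6.33 without IL4 library 3 and -1.93 without unstimulated library 3 on the log2 scale. F13a1 was no longer called without unstimulated library 3 or IL4 library 2 (edgeR adjusted p = 0.0728 to 0.0955).

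**Figure D3:**
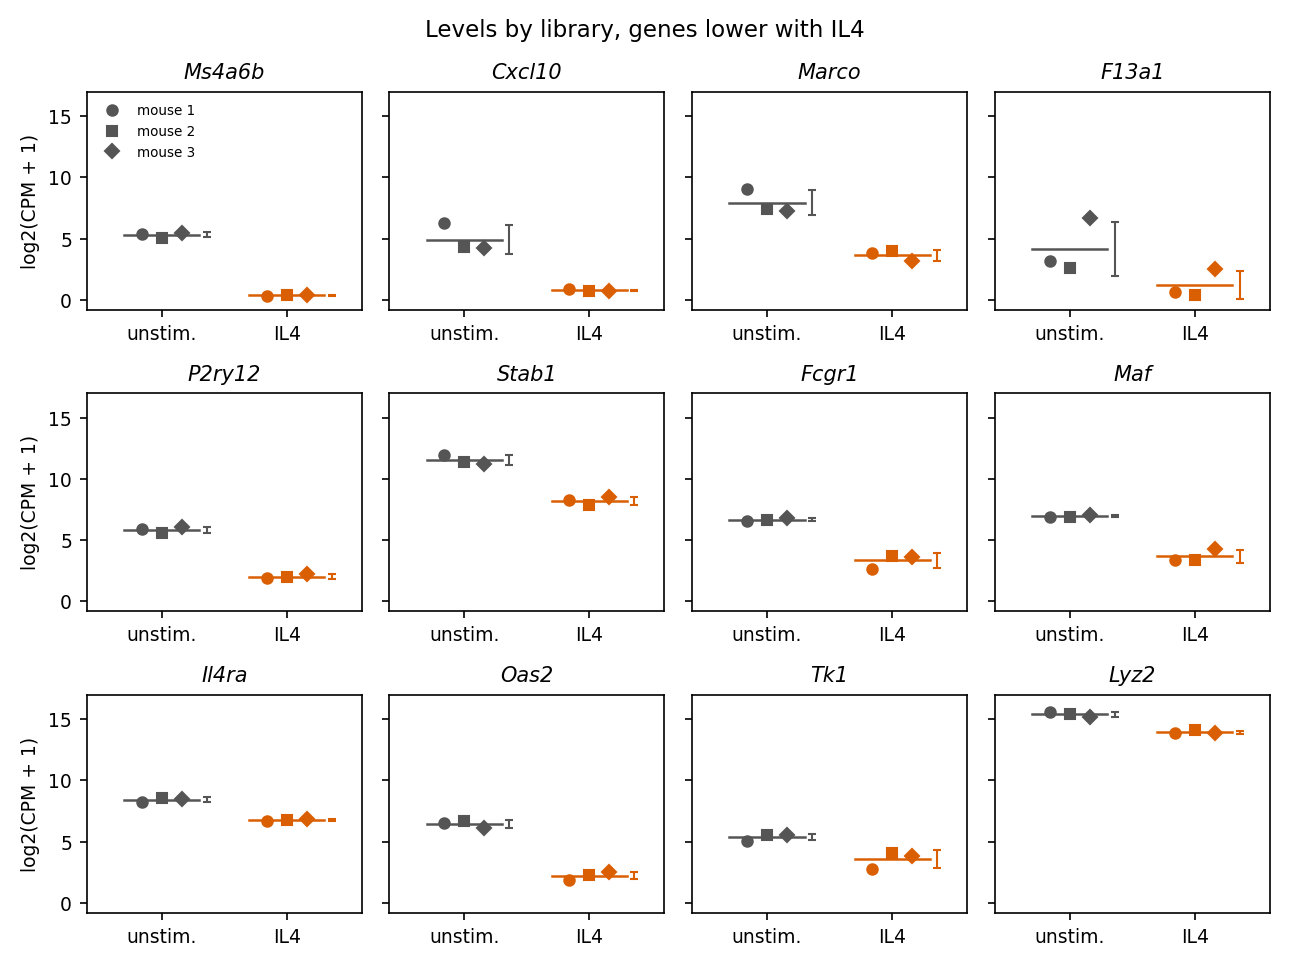
Level in each library, as log2(CPM + 1), of 12 genes that fell with IL4, drawn with 1 symbol for each mouse number, the group mean and a bar of 1 SD (n = 3). The spread is widest for F13a1, where both mouse 3 libraries are high, and small for P2ry12, Maf and Il4ra.

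Lists of genes by role were used to go through the response, and each list's count stands beside the 10.5% of all tested genes that rose and the 10.3% that fell. The lists were written with earlier results of these data known, so their counts are no independent test. Of the 12 tested genes of the IL4 receptor, its kinases, STAT6 and their inhibitors, 2 rose and 3 fell, with a median log2 fold change of -0.27. The receptor chain itself was among those that fell, with Il4ra at 299, 385 and 351 CPM without IL4 and 102, 108 and 113 CPM with it (log2 fold change -1.68, SE 0.17, edgeR adjusted p = 5.66e-05), and every treated library lay below every unstimulated one. Jak3, the kinase of the common gamma chain, had 23.2, 21 and 23.4 CPM without IL4 and 9.1, 12.6 and 13.8 CPM with it (log2 fold change -0.94, SE 0.22, edgeR adjusted p = 0.0108). Ptpn6 (SHP-1), a phosphatase that damps cytokine receptor signals, had 309.5, 445 and 404 CPM without IL4 and 125, 184 and 240.3 CPM with it (log2 fold change -1.08, SE 0.24, edgeR adjusted p = 0.00887). Jak2, which signals from CSF and interferon receptors, had 18.5, 8.24 and 8.63 CPM without IL4 and 36.4, 20.2 and 26.3 CPM with it (log2 fold change 1.2, SE 0.33, edgeR adjusted p = 0.0265). Jak1, the kinase of the Il4ra chain, had 399.9, 476 and 396 CPM without IL4 and 329, 404 and 384 CPM with it (log2 fold change -0.19, edgeR adjusted p = 0.519). Stat6 itself had 415, 417 and 446 CPM without IL4 and 307, 348 and 343 CPM with it (log2 fold change -0.36, edgeR adjusted p = 0.138), and neither of the pair was called. Stat6 overlaps Nab2 on the other strand, which held 1258 reads against 7825 of Stat6, and the strand setting of the counting is not given in the sources used here. Jak2 was no longer called without unstimulated library 2 or 3 or IL4 library 1 or 3 (edgeR adjusted p = 0.0511 to 0.107). Genes of IL4 signalling called higher numbered 0 without unstimulated library 2 or IL4 library 3, 1 without unstimulated library 1 or 3 or IL4 library 1 or 2 and 1 with both libraries of mouse 1 left out, in place of 2. Genes of IL4 signalling called lower numbered 5 with the replicate block, in place of 3.

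Of 21 tested markers of alternative activation, 17 rose, 2 fell and 2 were not called, with a median log2 fold change of 5.3 (4.87 with genes at 0 reads set to their bounds, and 6.17 without unstimulated library 2). These markers were listed with earlier results of these data known, so their count and median are a description and no independent test. Mmp12, the macrophage elastase (ENSMUSG00000049723, chr9:7344381-7369499, + strand), took a large share of reads, at 242, 928 and 292 CPM without IL4 and 22082, 19577 and 15824 CPM with it (log2 fold change 5.3, SE 0.51, edgeR adjusted p = 4.05e-05). Itgax, the integrin alpha X chain CD11c, had 23.2, 66.8 and 12.6 CPM without IL4 and 4242, 2723 and 2356 CPM with it (log2 fold change 6.56, SE 0.57, edgeR adjusted p = 2.26e-05). The VEGF receptor gene Flt1 had 0.235, 0.824 and 1.48 CPM without IL4 and 52.5, 85.7 and 169.6 CPM with it (log2 fold change 6.87, SE 0.60, edgeR adjusted p = 2.26e-05). For these 3 genes unstimulated library 2 or 3 stood apart from the others, but the smallest treated value was many times the highest unstimulated one. Slc7a2, a transporter of arginine, had 0, 0.412 and 0.74 CPM without IL4 and 85.4, 38.4 and 49.4 CPM with it (log2 fold change 7.15, SE 0.56, edgeR adjusted p = 1.26e-05). The lectin Mgl2, which binds galactose-type sugars, had 4.22, 0.824 and 1.97 CPM without IL4 and 115, 59.2 and 60.6 CPM with it (log2 fold change 4.93, SE 0.43, edgeR adjusted p = 2.40e-05). Clec7a (dectin-1), the receptor for fungal beta-glucan, had 114, 221 and 116 CPM without IL4 and 1404, 2078 and 1578 CPM with it (log2 fold change 3.49, SE 0.29, edgeR adjusted p = 1.85e-05). Ptgs1, the constitutive cyclooxygenase, had 52.6, 41.6 and 29.1 CPM without IL4 and 182, 228 and 279 CPM with it (log2 fold change 2.48, SE 0.25, edgeR adjusted p = 5.69e-05). The chemokine Ccl22 and the PD-1 ligand Pdcd1lg2, both at 0 reads without IL4, had 8.03, 6.29 and 11.2 CPM and 11.5, 4.96 and 7.24 CPM with it, at least 30.4-fold and 29.3-fold higher. Mmp12 changed by 6.17 without unstimulated library 2, Itgax changed by 7.44 without unstimulated library 2 and Flt1 changed by 7.7 without unstimulated library 3 on the log2 scale. Slc7a2 changed by 6.47 without unstimulated library 1 and 8.26 without unstimulated library 3 and Mgl2 changed by 5.65 without unstimulated library 1 on the log2 scale. Alternative activation markers called lower numbered 0 without unstimulated library 3 or IL4 library 2, 1 without unstimulated library 1 or IL4 library 1 and 1 with both libraries of mouse 1 left out, in place of 2.

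The mannose receptor, often used as a marker of this state, did not rise. Mrc1 had 2232, 1318 and 1792 CPM without IL4 and 873, 832 and 1242 CPM with it (log2 fold change -0.86, SE 0.23, edgeR adjusted p = 0.0236), a small fall. The inhibitory receptor Cd200r1 had 268, 276 and 257 CPM without IL4 and 237, 176 and 239 CPM with it (log2 fold change -0.30, edgeR adjusted p = 0.283). The IL1 receptor antagonist Il1rn had 40.8, 11.5 and 11.3 CPM without IL4 and 92.4, 32.8 and 29.3 CPM with it (log2 fold change 1.25, edgeR adjusted p = 0.136). Il1rn was higher in both libraries of mouse 1 than in the others of their group. Of the other markers in the list, Clec10a, Tgm2, Ear2 and Cd300ld were among those that rose, while Chil3, Chil4, Cd209a, Ccl17, Ccl24 and Alox15 were not tested. Il1rn changed by 0.51 without IL4 library 1 and 2.18 without unstimulated library 1 on the log2 scale. Mrc1 was no longer called without unstimulated library 1 or 3 or IL4 library 1 or 2 (edgeR adjusted p = 0.0537 to 0.106). Mrc1 was not called with both libraries of mouse 1 left out (log2 fold change -0.58, adjusted p = 0.139). Il1rn had an edgeR adjusted p of 2.67e-05 with the replicate block.

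Transcription factors listed for the IL4 response changed mostly upward, but they too were listed with earlier results of these data known. Of 27 tested, 15 rose, 3 fell and 9 were not called. Bhlhe40, a basic helix-loop-helix repressor, had 14.5, 24.7 and 16 CPM without IL4 and 1079, 854 and 929 CPM with it (log2 fold change 5.72, SE 0.25, edgeR adjusted p = 6.07e-07). Egr2, a zinc finger factor, had 15.7, 6.59 and 5.67 CPM without IL4 and 269.9, 234 and 183 CPM with it (log2 fold change 4.57, SE 0.35, edgeR adjusted p = 1.08e-05). Irf4, the interferon regulatory factor tied to IL4 responses, had 7.04, 4.12 and 4.93 CPM without IL4 and 86, 124 and 72.8 CPM with it (log2 fold change 4.09, SE 0.29, edgeR adjusted p = 6.36e-06). The nuclear receptor Pparg, a regulator of lipid genes in macrophages, had 16.4, 17.7 and 11.1 CPM without IL4 and 114, 76.8 and 64.2 CPM with it (log2 fold change 2.51, SE 0.27, edgeR adjusted p = 8.70e-05). In each of these genes every treated library lay at least 3-fold above every unstimulated one. Tfeb, a regulator of lysosome genes, had 45.8, 67.6 and 57 CPM without IL4 and 106, 142 and 144 CPM with it (log2 fold change 1.21, SE 0.20, edgeR adjusted p = 0.0016). Myc, the growth regulator, had 91.7, 63.5 and 81.6 CPM without IL4 and 129, 140.3 and 152 CPM with it (log2 fold change 0.83, SE 0.18, edgeR adjusted p = 0.00811). Klf4, Batf3, Nfil3, Mitf, Cebpa, Cebpb and Zeb2 also rose. Those that fell were Maf, Rxra and Irf8, and of these Maf, a factor of resident macrophages, had 119, 117 and 132 CPM without IL4 and 9.64, 9.27 and 18.4 CPM with it (log2 fold change -3.31, SE 0.26, edgeR adjusted p = 1.30e-05). Spi1 (listed as Sfpi1), the master regulator PU.1 of myeloid cells, had 702, 605 and 578 CPM without IL4 and 889, 689.7 and 810.3 CPM with it (log2 fold change 0.34, edgeR adjusted p = 0.205). Irf5 had 384, 401 and 301 CPM without IL4 and 389, 444 and 415 CPM with it (log2 fold change 0.20, edgeR adjusted p = 0.491). Neither was called. Egr2 changed by 5.23 without unstimulated library 1 on the log2 scale. Transcription factors called lower numbered 5 with the replicate block and 1 without unstimulated library 3 or IL4 library 1 or 2, in place of 3.

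Of 16 tested genes of arginine, polyamine and proline metabolism, 3 rose and 1 fell. The 3 that rose were Arg1, Slc7a2 and the other cationic amino acid transporter, Slc7a1, at 30.3, 36.3 and 33.5 CPM without IL4 and 95.6, 68.2 and 73.4 CPM with it (log2 fold change 1.25, SE 0.20, edgeR adjusted p = 9.71e-04). Smox, which oxidizes spermine, fell from 121, 187 and 227 CPM to 51.4, 95.3 and 104 CPM (log2 fold change -1.1, SE 0.29, edgeR adjusted p = 0.0211). Oat, which takes ornithine towards proline and glutamate, had 199, 188 and 197 CPM without IL4 and 296, 241 and 239 CPM with it (log2 fold change 0.41, edgeR adjusted p = 0.103). Sat1, which acetylates polyamines, had 234, 244 and 234 CPM without IL4 and 324, 227 and 277 CPM with it (log2 fold change 0.22, edgeR adjusted p = 0.462). Smox was no longer called without unstimulated library 2 or 3 (edgeR adjusted p = 0.0761 to 0.0783). Oat had an edgeR adjusted p of 0.0409 with the replicate block. Genes of arginine metabolism called higher numbered 7 with the replicate block, in place of 3. Genes of arginine metabolism called lower numbered 0 without unstimulated library 2 or 3, in place of 1.

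Among 21 fusion and osteoclast genes, 10 rose and 2 fell. Dcstamp, the partner of Ocstamp in cell fusion, had 0.469, 0.824 and 0.247 CPM without IL4 and 70.2, 57.3 and 56.3 CPM with it (log2 fold change 6.93, SE 0.34, edgeR adjusted p = 9.57e-07). Atp6v0d2, a proton pump subunit of osteoclasts and fusing macrophages, had 34, 87 and 34.5 CPM without IL4 and 2069, 1581 and 1631 CPM with it (log2 fold change 5.11, SE 0.38, edgeR adjusted p = 7.98e-06). The integrin beta 3 chain, Itgb3, had 3.29, 3.71 and 4.44 CPM without IL4 and 57.6, 66.2 and 85.9 CPM with it (log2 fold change 4.18, SE 0.26, edgeR adjusted p = 2.56e-06). E-cadherin (Cdh1), an adhesion molecule made by IL4-treated macrophages, had 0.235, 0 and 0.493 CPM without IL4 and 25.2, 70.2 and 62.2 CPM with it, and its pooled reads rose 181-fold, with a 95% counting interval of 61.6 to 881. For each of these genes every treated library lay at least 10-fold above every unstimulated one. The tetraspanin Cd9 had 759, 905 and 776 CPM without IL4 and 3049, 2638 and 2563 CPM with it (log2 fold change 1.76, SE 0.17, edgeR adjusted p = 5.00e-05). Trem2 had 634, 628 and 676 CPM without IL4 and 566, 866 and 766 CPM with it (log2 fold change 0.18, edgeR adjusted p = 0.587). Its adaptor Tyrobp had 1876, 1708 and 2084 CPM without IL4 and 1825, 1841 and 2356 CPM with it (log2 fold change 0.09, edgeR adjusted p = 0.807). The other adaptor, Fcer1g, the common gamma chain of Fc receptors, fell from 3923, 3679 and 3935 CPM to 2083, 2002 and 2226 CPM (log2 fold change -0.87, SE 0.16, edgeR adjusted p = 0.00296). Sirpa, the receptor for the self signal CD47, had 3611, 4533 and 5739.9 CPM without IL4 and 3454, 3776 and 3643 CPM with it (log2 fold change -0.35, edgeR adjusted p = 0.269). Cdh1 had a pooled fold of 338 without unstimulated library 3. Fusion and osteoclast genes called lower numbered 4 with the replicate block and 4 without IL4 library 3, in place of 2.

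Lectin and scavenger receptors split, with 7 of 23 higher and 10 lower. Beside the rise of Mgl2 and Clec7a, Clec4n (dectin-2) had 85.2, 42.4 and 55.5 CPM without IL4 and 5.09, 5.63 and 5.93 CPM with it (log2 fold change -3.47, SE 0.30, edgeR adjusted p = 2.26e-05). Stab1, a scavenger receptor that also clears apoptotic cells, had 3979, 2617 and 2359 CPM without IL4 and 302, 227 and 356 CPM with it (log2 fold change -3.34, SE 0.26, edgeR adjusted p = 1.26e-05). Cxcl16, a scavenger receptor and membrane-bound chemokine, had 155, 114 and 112 CPM without IL4 and 40.7, 30.4 and 32.3 CPM with it (log2 fold change -1.88, SE 0.21, edgeR adjusted p = 9.14e-05). All 3 fell in every mouse number. Of 18 receptors and bridges for apoptotic cells, 7 rose and 4 fell. Mfge8, which bridges phosphatidylserine to integrins, had 71.8, 128 and 107 CPM without IL4 and 699.7, 928 and 803 CPM with it (log2 fold change 2.99, SE 0.24, edgeR adjusted p = 1.29e-05). Annexin A1 (Anxa1) had 370.1, 652 and 542 CPM without IL4 and 3144, 3445 and 3751 CPM with it (log2 fold change 2.73, SE 0.23, edgeR adjusted p = 1.86e-05). Lrp1, an endocytic receptor, had 833, 1104 and 1232 CPM without IL4 and 651, 951 and 1162 CPM with it (log2 fold change -0.20, edgeR adjusted p = 0.642).

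Chemokines fell more often than they rose, with 7 of 13 lower and 3 higher and a median log2 fold change of -1.88 (-1.09 without unstimulated library 1). Pf4 (CXCL4) had 399, 299.6 and 584 CPM without IL4 and 77.7, 84.1 and 108 CPM with it (log2 fold change -2.25, SE 0.25, edgeR adjusted p = 1.13e-04). Ccl9 had 2245, 1749.7 and 1266 CPM without IL4 and 2023, 1238 and 1725 CPM with it (log2 fold change -0.08, edgeR adjusted p = 0.881). Ccl2, which recruits monocytes, had 908, 474 and 483 CPM without IL4 and 405, 458 and 348 CPM with it (log2 fold change -0.62, edgeR adjusted p = 0.117). Neither of the last pair was called. Of 14 chemoattractant receptors, 5 rose and 7 fell. Ccr1, a receptor for several CC chemokines, had 2.11, 6.18 and 1.73 CPM without IL4 and 78.7, 90.0 and 53 CPM with it (log2 fold change 4.61, SE 0.39, edgeR adjusted p = 2.05e-05). Ccr3, the eotaxin receptor best known from eosinophils, had 3.52, 4.95 and 0.986 CPM without IL4 and 40.7, 29.5 and 18.4 CPM with it (log2 fold change 3.32, SE 0.44, edgeR adjusted p = 3.44e-04). The ADP receptors P2ry12 and P2ry13 fell together. P2ry12 had 60.3, 47 and 65.6 CPM without IL4 and 2.68, 2.98 and 3.62 CPM with it (log2 fold change -4.22, SE 0.26, edgeR adjusted p = 2.43e-06). P2ry13 had 42.5, 20.2 and 33 CPM without IL4 and 0.803, 0.993 and 1.32 CPM with it (log2 fold change -4.93, SE 0.40, edgeR adjusted p = 1.34e-05). The sphingosine 1-phosphate receptor S1pr1 had 338, 339 and 341 CPM without IL4 and 49, 53 and 56.6 CPM with it (log2 fold change -2.68, SE 0.16, edgeR adjusted p = 2.51e-06). Receptors for complement peptides were not called, with C5ar1 at 224, 124 and 146 CPM without IL4 and 161, 96.6 and 109 CPM with it (log2 fold change -0.43, edgeR adjusted p = 0.298). C3ar1 had 687, 553 and 562 CPM without IL4 and 826, 720.2 and 478 CPM with it (log2 fold change 0.17, edgeR adjusted p = 0.674). Of 12 purine receptors and ectonucleotidases, 2 rose and 4 fell, among them Enpp1, which splits ATP outside the cell, at 11.5, 11.1 and 8.38 CPM without IL4 and 3.21, 3.31 and 4.28 CPM with it (log2 fold change -1.51, SE 0.28, edgeR adjusted p = 0.00266). Ccr1 changed by 5.24 without unstimulated library 2 on the log2 scale. Ccl2 and C5ar1 had edgeR adjusted p-values of 0.0272 and 0.0319 with the replicate block. Purine receptor genes called higher numbered 1 without IL4 library 2, in place of 2.

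Integrins changed selectively, with 5 of 14 higher and 4 lower. Itgax and Itgb3 rose, and Itga8 fell, as given above. The fibronectin receptor chain Itga5 had 101, 110.4 and 116 CPM without IL4 and 268, 285 and 259 CPM with it (log2 fold change 1.31, SE 0.16, edgeR adjusted p = 1.70e-04). The alpha M chain Itgam (CD11b) had 1376, 1348 and 1059.9 CPM without IL4 and 815, 1204 and 1479.6 CPM with it (log2 fold change -0.11, edgeR adjusted p = 0.802). The beta 1 chain Itgb1 had 552, 566 and 585 CPM without IL4 and 527, 573 and 672 CPM with it (log2 fold change 0.06, edgeR adjusted p = 0.866), and neither was called. Itgal, the alpha L chain of LFA-1, had 149.7, 251 and 130.0 CPM without IL4 and 36.7, 167 and 134 CPM with it (log2 fold change -0.65, edgeR adjusted p = 0.371). Other adhesion receptors were higher in 8 of 25 and lower in 7. The heparan sulfate proteoglycan glypican 1, Gpc1, had 3.75, 9.07 and 2.96 CPM without IL4 and 398, 478 and 422 CPM with it (log2 fold change 6.47, SE 0.34, edgeR adjusted p = 1.06e-06). The endocytic adaptor Dab2 had 3881, 4790.1 and 4257 CPM without IL4 and 786, 1016 and 1181 CPM with it (log2 fold change -2.12, SE 0.20, edgeR adjusted p = 4.08e-05). Of 36 focal adhesion, podosome and motility genes, 10 rose and 10 fell. Cortactin (Cttn), which stabilizes branched actin in podosomes, had 3.75, 7.42 and 2.47 CPM without IL4 and 35.3, 38.1 and 25.4 CPM with it (log2 fold change 2.95, SE 0.34, edgeR adjusted p = 1.30e-04). Zyxin (Zyx) had 168, 97.3 and 134 CPM without IL4 and 415, 355 and 356 CPM with it (log2 fold change 1.49, SE 0.21, edgeR adjusted p = 5.06e-04). Vinculin (Vcl) had 44.8, 54 and 48.3 CPM without IL4 and 128, 134 and 119 CPM with it (log2 fold change 1.38, SE 0.17, edgeR adjusted p = 1.81e-04). Tensin 1 (Tns1), which links integrins to actin, had 19.2, 17.3 and 24.7 CPM without IL4 and 3.75, 3.64 and 2.96 CPM with it (log2 fold change -2.56, SE 0.26, edgeR adjusted p = 5.87e-05). Itgal had an edgeR adjusted p of 0.0261 with the replicate block. Integrins called lower numbered 1 without unstimulated library 3 and 2 without unstimulated library 2, in place of 4. Other adhesion receptors called lower numbered 4 without unstimulated library 3 or IL4 library 3 and 4 with both libraries of mouse 1 left out, in place of 7.

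Secreted and membrane proteases mostly rose where they changed. Of 6 metalloproteinase and TIMP genes tested, 3 rose. Besides Mmp12, the collagenase Mmp13 had 3.75, 9.89 and 5.67 CPM without IL4 and 898, 878 and 349 CPM with it (log2 fold change 6.86, SE 0.47, edgeR adjusted p = 4.42e-06). Mmp19 had 45.1, 45.3 and 62.1 CPM without IL4 and 554, 526 and 442 CPM with it (log2 fold change 3.31, SE 0.20, edgeR adjusted p = 2.51e-06). Mmp8 had 10.1, 26 and 15.8 CPM without IL4 and 5.09, 18.5 and 11.5 CPM with it (log2 fold change -0.54, edgeR adjusted p = 0.468). Mmp27 had 39.9, 19.4 and 25.2 CPM without IL4 and 18.5, 15.6 and 12.8 CPM with it (log2 fold change -0.86, edgeR adjusted p = 0.0525). The inhibitor Timp2 had 984, 646 and 897 CPM without IL4 and 924, 645 and 871 CPM with it (log2 fold change -0.05, edgeR adjusted p = 0.909), and none of the last 3 was called. Of 8 ADAM and ADAMTS genes, 2 rose, and Adam19 had 0.704, 0.412 and 0.986 CPM without IL4 and 7.77, 5.96 and 9.88 CPM with it (log2 fold change 3.35, SE 0.40, edgeR adjusted p = 1.60e-04). Cathepsins and their inhibitors were higher in 7 of 14 and lower in 1. Cathepsin S (Ctss), which cuts the invariant chain of MHC class II, had 668, 601 and 681 CPM without IL4 and 2306, 2189 and 2086 CPM with it (log2 fold change 1.75, SE 0.16, edgeR adjusted p = 3.34e-05). Cathepsin L (Ctsl) had 1510.2, 1878 and 1458 CPM without IL4 and 5058, 5434 and 4395 CPM with it (log2 fold change 1.62, SE 0.19, edgeR adjusted p = 1.24e-04). The gene that fell was cathepsin C (Ctsc), which activates granule proteases, at 618, 471 and 367 CPM without IL4 and 118, 114 and 72.8 CPM with it (log2 fold change -2.26, SE 0.25, edgeR adjusted p = 9.75e-05). Cathepsins B and D were among the genes with the most reads in both groups and were not called. Ctsb had 22859, 14003 and 18281 CPM without IL4 and 23615, 16898 and 17161 CPM with it (log2 fold change 0.06, edgeR adjusted p = 0.895). Ctsd had 40060.2, 49884 and 39994 CPM without IL4 and 27823, 41519 and 30255 CPM with it (log2 fold change -0.38, edgeR adjusted p = 0.265). Mmp8 and Mmp27 had edgeR adjusted p-values of 0.0313 and 0.00345 with the replicate block. Metalloproteinase and TIMP genes called lower numbered 2 with the replicate block and 1 without unstimulated library 2 or IL4 library 1, in place of 0. ADAM and ADAMTS genes called lower numbered 2 with the replicate block, 1 without IL4 library 1 or 3 and 1 with both libraries of mouse 1 left out, in place of 0. Cathepsin genes called higher numbered 4 without unstimulated library 2 or IL4 library 2 or 3, in place of 7. Cathepsin genes called lower numbered 2 with the replicate block and 2 without unstimulated library 2, in place of 1.

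Of 16 genes of plasminogen activation, coagulation and transglutamination 7 rose and 3 fell. The coagulation genes F3, F7 and F10 were among those with the largest rise. Tissue factor (F3), the cell-surface initiator, had 0.235, 0 and 0 CPM without IL4 and 20.9, 18.5 and 17.4 CPM with it, and its pooled reads rose 205-fold, with a 95% counting interval of 36.4 to 8145. Factor X (F10), which the complex of tissue factor and factor VII activates, had 0.469, 0.412 and 0 CPM without IL4 and 196, 94.7 and 117 CPM with it, and its pooled reads rose 502-fold, with a 95% counting interval of 172 to 2439. With F7, the 3 genes were near or at 0 reads in every unstimulated library. The urokinase receptor Plaur had 217, 225 and 184 CPM without IL4 and 748, 789.7 and 698 CPM with it (log2 fold change 1.84, SE 0.17, edgeR adjusted p = 2.87e-05). Of 11 matrix genes 4 rose and 2 fell. Fibronectin (Fn1) had 0.235, 0 and 0.247 CPM without IL4 and 60.5, 9.6 and 113 CPM with it, and its pooled reads rose 327-fold, with a 95% counting interval of 90.3 to 2710.1, with treated library 2 far below the other treated ones. Galectin 3 (Lgals3) had 1141, 951 and 1456 CPM without IL4 and 3803, 4494 and 4163 CPM with it (log2 fold change 1.81, SE 0.20, edgeR adjusted p = 1.00e-04). Osteopontin (Spp1), a secreted adhesion protein, had 16181, 10727 and 10102 CPM without IL4 and 4709, 7311 and 6368 CPM with it (log2 fold change -1.01, SE 0.24, edgeR adjusted p = 0.0123). The endostatin precursor Col18a1 had 21.6, 29.3 and 25.9 CPM without IL4 and 6.96, 11.6 and 9.55 CPM with it (log2 fold change -1.45, SE 0.24, edgeR adjusted p = 0.00159). Col18a1 overlaps Slc19a1 on the other strand, which held 452 reads against its 358. F3 had a pooled fold of 128 without unstimulated library 3. F10 had a pooled fold of 909 without unstimulated library 1 and 313 without unstimulated library 3. Fn1 had a pooled fold of 203 without IL4 library 3. Spp1 was not called with both libraries of mouse 1 left out (log2 fold change -0.61, adjusted p = 0.078). Coagulation and plasminogen genes called lower numbered 5 with the replicate block and 1 without IL4 library 2, in place of 3. Matrix genes called higher numbered 2 without unstimulated library 2 or 3, in place of 4. Matrix genes called lower numbered 1 with both libraries of mouse 1 left out, in place of 2.

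Growth factor genes rose in 6 of 14 and fell in 3. The EGF family member Hbegf had 1.64, 0 and 0.493 CPM without IL4 and 45.3, 19.5 and 17.8 CPM with it (log2 fold change 5.01, SE 0.60, edgeR adjusted p = 1.65e-04). Angptl2 had 7.98, 9.48 and 9.62 CPM without IL4 and 106, 77.8 and 97.5 CPM with it (log2 fold change 3.38, SE 0.22, edgeR adjusted p = 3.09e-06). The platelet-derived growth factor chain Pdgfa had 17.6, 14.8 and 19.2 CPM without IL4 and 135, 114 and 132 CPM with it (log2 fold change 2.87, SE 0.19, edgeR adjusted p = 3.99e-06). Gdf15, a stress-induced cytokine, fell from 142, 47.8 and 99.9 CPM to 36.7, 22.8 and 23.7 CPM (log2 fold change -1.8, SE 0.35, edgeR adjusted p = 0.00399). Their receptors were higher in 7 of 23 and lower in 8. Csf2rb, the shared signalling chain for GM-CSF, IL3 and IL5, had 75.6, 49.9 and 59.7 CPM without IL4 and 447, 507 and 367 CPM with it (log2 fold change 2.83, SE 0.21, edgeR adjusted p = 9.91e-06). Its close relative Csf2rb2 had 86.6, 105 and 73.5 CPM without IL4 and 673, 625 and 450.1 CPM with it (log2 fold change 2.72, SE 0.22, edgeR adjusted p = 1.31e-05). These are near-copies, so reads may have been split between them. The G-CSF receptor Csf3r had 13.6, 13.6 and 12.8 CPM without IL4 and 1.61, 1.32 and 1.98 CPM with it (log2 fold change -3.0, SE 0.29, edgeR adjusted p = 3.82e-05). Csf1r, the receptor for the CSF-1 present in both groups, had 640.1, 443 and 481 CPM without IL4 and 337, 393 and 362 CPM with it (log2 fold change -0.52, edgeR adjusted p = 0.0706). Hbegf changed by 6.33 without unstimulated library 1 on the log2 scale. Csf1r had an edgeR adjusted p of 0.0248 with the replicate block. Cytokine receptors called lower numbered 5 without unstimulated library 1 or IL4 library 2 and 5 with both libraries of mouse 1 left out, in place of 8.

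MHC class II genes rose as a group, with 6 of 7 higher and a median log2 fold change of 3.94 (3.24 without unstimulated library 1, 4.64 without unstimulated library 2 and 2.71 without IL4 library 2). H2-Ab1, the beta chain of I-A, had 0, 1.24 and 0.493 CPM without IL4 and 4.55, 28.1 and 7.57 CPM with it (log2 fold change 4.7, SE 0.93, edgeR adjusted p = 0.00417). The invariant chain Cd74 had 14.5, 38.3 and 12.3 CPM without IL4 and 270.2, 476 and 263 CPM with it (log2 fold change 4.01, SE 0.42, edgeR adjusted p = 7.03e-05). H2-DMa, which exchanges peptides on class II, had 2.82, 1.65 and 6.66 CPM without IL4 and 12, 17.5 and 17.8 CPM with it (log2 fold change 1.99, SE 0.39, edgeR adjusted p = 0.00367). Ifi30, a lysosomal thiol reductase, had 815, 625 and 579.5 CPM without IL4 and 2227, 1581 and 1406 CPM with it (log2 fold change 1.37, SE 0.22, edgeR adjusted p = 0.00116). The unstimulated libraries differed widely for H2-Ab1, Cd74 and H2-DMa, and the groups did not overlap. H2-DMb1 had 27.7, 27.2 and 37.7 CPM without IL4 and 29.2, 53.9 and 51 CPM with it (log2 fold change 0.52, edgeR adjusted p = 0.195). The class II transactivator Ciita was not tested. Costimulatory and inhibitory molecules rose in 7 of 23 and fell in 9. Slamf8 had 8.92, 6.59 and 3.21 CPM without IL4 and 63.7, 49.3 and 67.2 CPM with it (log2 fold change 3.26, SE 0.31, edgeR adjusted p = 4.18e-05). Icosl, the ligand of the T cell receptor ICOS, had 11.3, 10.3 and 8.88 CPM without IL4 and 0.268, 0.993 and 1.32 CPM with it (log2 fold change -3.57, SE 0.41, edgeR adjusted p = 1.18e-04). H2-Ab1 changed by 3.57 without IL4 library 2, 4.01 without unstimulated library 1 and 5.59 without unstimulated library 2, Cd74 changed by 4.64 without unstimulated library 2 and H2-DMa changed by 2.72 without unstimulated library 3 on the log2 scale.

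**Figure D4:**
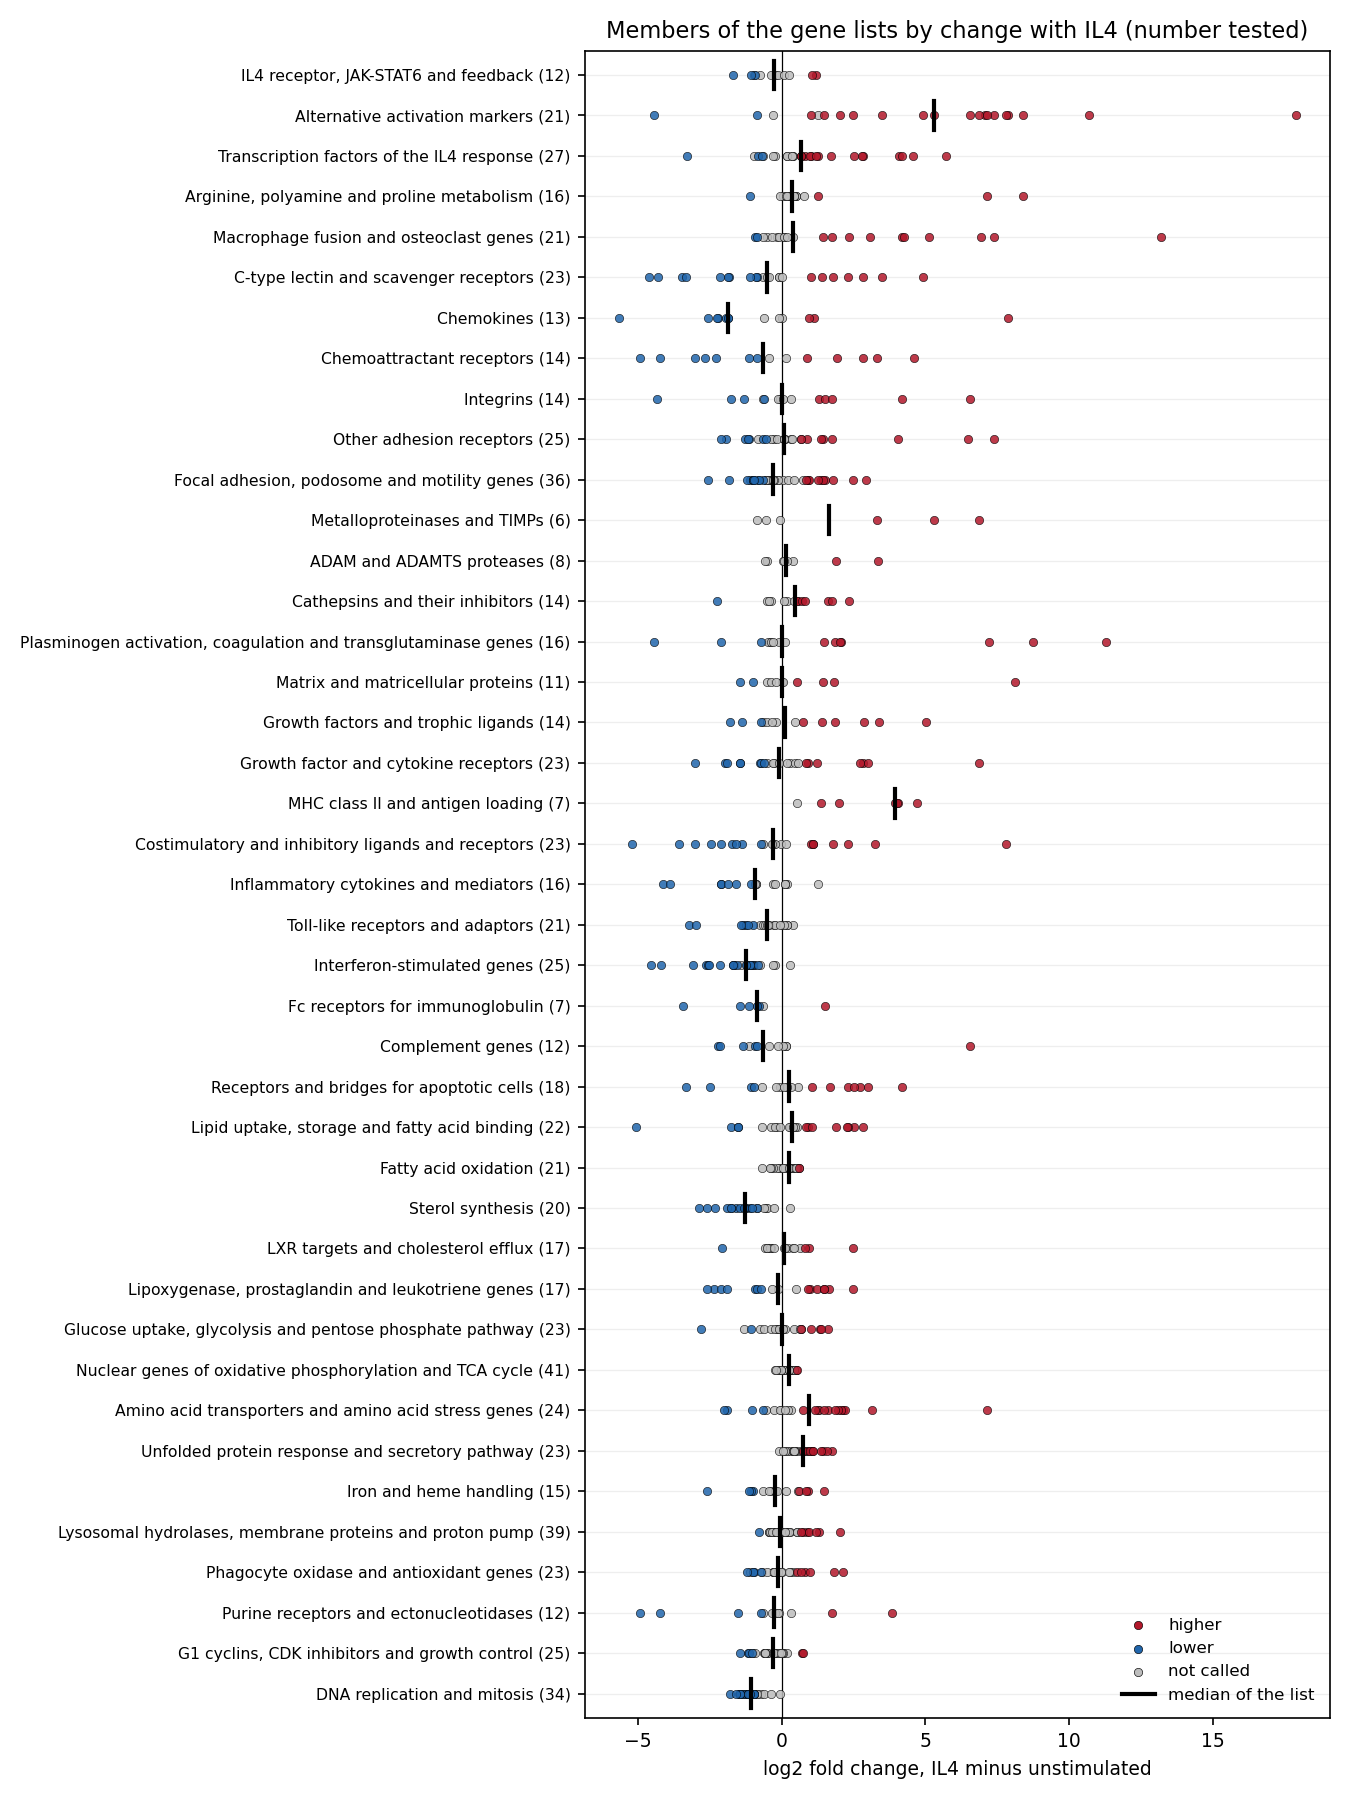
Log2 fold change (IL4 minus unstimulated, horizontal axis) of every tested member of the 41 lists by role, 1 line per list with the number tested in parentheses. Red points rose, blue points fell, grey points were not called, and the black bar is the list's median, which is 5.30 for alternative activation, 3.94 for MHC class II and -1.26 for sterol synthesis.

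Of 16 inflammatory cytokine and mediator genes, 0 rose and 7 fell by edgeR. At an unadjusted p under 0.05 1 of these inflammatory genes was higher, and DESeq2 called 0 higher and limma 0. Tnf had 57.5, 25.5 and 30.1 CPM without IL4 and 13.1, 6.62 and 5.93 CPM with it (log2 fold change -2.13, SE 0.38, edgeR adjusted p = 0.00219). The inflammasome sensor Nlrp3 had 161, 64.3 and 82.1 CPM without IL4 and 23.6, 20.9 and 27 CPM with it (log2 fold change -2.11, SE 0.32, edgeR adjusted p = 8.16e-04). Nfkbia, the inhibitor and target of NF-kappa-B, had 363, 246 and 251 CPM without IL4 and 79.3, 89 and 68.5 CPM with it (log2 fold change -1.86, SE 0.21, edgeR adjusted p = 9.75e-05). Il16 was also called lower (log2 fold change -3.87, edgeR adjusted p = 1.61e-04), but it held 129 reads against 1062 of Stard5, which it overlaps on the other strand. The inflammasome adaptor Pycard had 44.3, 43.7 and 75 CPM without IL4 and 43.9, 64.9 and 70.5 CPM with it (log2 fold change 0.13, edgeR adjusted p = 0.805). The pore-forming Gsdmd had 84.9, 85.3 and 108 CPM without IL4 and 99.3, 107 and 112 CPM with it (log2 fold change 0.19, edgeR adjusted p = 0.517). Of 21 Toll-like receptors and adaptors, 0 rose and 7 fell. The lipopeptide receptor Tlr2 had 56.3, 32.6 and 50.1 CPM without IL4 and 3.48, 4.63 and 6.91 CPM with it (log2 fold change -3.23, SE 0.31, edgeR adjusted p = 3.82e-05). Tlr9, the receptor for CpG DNA, had 16.7, 19.4 and 15.8 CPM without IL4 and 1.34, 1.99 and 3.29 CPM with it (log2 fold change -2.97, SE 0.31, edgeR adjusted p = 7.49e-05). Tlr7, which senses single-stranded RNA, had 345, 309 and 309 CPM without IL4 and 122, 123 and 136 CPM with it (log2 fold change -1.34, SE 0.16, edgeR adjusted p = 1.50e-04). At an unadjusted p under 0.05 1 of these Toll-like receptor genes was higher, and DESeq2 called 0 higher and limma 0. The endosomal chaperone Unc93b1 had 2175, 2589 and 2360.3 CPM without IL4 and 1532, 1669 and 1911 CPM with it (log2 fold change -0.48, edgeR adjusted p = 0.0744). Il16 changed by -4.52 without IL4 library 2 on the log2 scale. Unc93b1 had an edgeR adjusted p of 0.0207 with the replicate block. Inflammatory genes called higher numbered 1 with the replicate block, 1 without unstimulated library 1 and 1 with both libraries of mouse 1 left out, in place of 0. Toll-like receptor genes called lower numbered 13 with the replicate block, in place of 7.

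Of 25 interferon-stimulated genes tested, 17 fell, 0 rose and 8 were not called by edgeR, with a median log2 fold change of -1.24. Likewise 0 interferon-stimulated genes were higher at an unadjusted p under 0.05, and 0 were called higher by DESeq2 or limma. The RNA sensors of the OAS family were among them, with Oas2 at 92.5, 103 and 66.6 CPM without IL4 and 2.68, 3.97 and 4.61 CPM with it (log2 fold change -4.54, SE 0.28, edgeR adjusted p = 2.56e-06). The OAS-like gene Oasl2 had 195, 201 and 99.6 CPM without IL4 and 22, 37.1 and 20.4 CPM with it (log2 fold change -2.64, SE 0.32, edgeR adjusted p = 1.65e-04). Ifit1, which binds viral RNA, had 57.3, 20.6 and 24.2 CPM without IL4 and 2.14, 1.32 and 1.98 CPM with it (log2 fold change -4.21, SE 0.48, edgeR adjusted p = 1.19e-04). Irf7, the regulator of type I interferon, had 104, 51.5 and 54.3 CPM without IL4 and 4.55, 12.2 and 8.23 CPM with it (log2 fold change -3.09, SE 0.38, edgeR adjusted p = 1.87e-04), although it overlaps Phrf1, which held 354 reads against its 866. Irf9, Stat2, Rsad2, Bst2, Zbp1, Ddx58 and Ifih1 fell as well. Irf1 had 141, 121 and 98.9 CPM without IL4 and 99.9, 121 and 83.3 CPM with it (log2 fold change -0.25, edgeR adjusted p = 0.472). Ifit1 changed by -3.59 without unstimulated library 1 on the log2 scale. Interferon-stimulated genes called lower numbered 21 with the replicate block, in place of 17.

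Fc receptor and complement genes mostly fell where they were called. Of 7 Fc receptor genes 5 fell and 1 rose. Fcgr1, the high affinity IgG receptor, had 94.3, 101 and 109 CPM without IL4 and 5.36, 11.9 and 11.5 CPM with it (log2 fold change -3.42, SE 0.27, edgeR adjusted p = 1.31e-05). The neonatal Fc receptor Fcgrt had 196, 196 and 231 CPM without IL4 and 60.0, 67.2 and 101 CPM with it (log2 fold change -1.45, SE 0.21, edgeR adjusted p = 6.79e-04). The inhibitory Fcgr2b had 51.6, 33 and 61.2 CPM without IL4 and 19.5, 17.5 and 30.6 CPM with it (log2 fold change -1.12, SE 0.28, edgeR adjusted p = 0.0153). Fcgr3 had 1348, 1814 and 2286 CPM without IL4 and 924, 1208 and 1373 CPM with it (log2 fold change -0.64, edgeR adjusted p = 0.0747). Of 12 complement genes, 5 fell and 1, Itgax, rose. The central component C3 had 88, 37.5 and 35.5 CPM without IL4 and 11, 3.64 and 20.1 CPM with it (log2 fold change -2.22, SE 0.50, edgeR adjusted p = 0.00851). Properdin (Cfp) had 857, 342 and 549 CPM without IL4 and 168, 97.3 and 132 CPM with it (log2 fold change -2.14, SE 0.32, edgeR adjusted p = 7.43e-04). The C1q chain C1qc had 48.8, 25.5 and 44.1 CPM without IL4 and 21.4, 13.9 and 11.5 CPM with it (log2 fold change -1.34, SE 0.30, edgeR adjusted p = 0.00784). C3 changed by -2.84 without IL4 library 3 on the log2 scale. Fcgr2b was no longer called without unstimulated library 3 or IL4 library 2 (edgeR adjusted p = 0.0599 to 0.0703). Fcgr2b was not called with both libraries of mouse 1 left out (log2 fold change -0.99, adjusted p = 0.0622). Fcgr3 had an edgeR adjusted p of 0.00325 with the replicate block. Fc receptor genes called higher numbered 0 without unstimulated library 1 or 2 or IL4 library 1 or 3 and 0 with both libraries of mouse 1 left out, in place of 1. Fc receptor genes called lower numbered 3 without unstimulated library 3 or IL4 library 2, in place of 5.

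Of 20 sterol synthesis genes 14 fell and 0 rose by edgeR, with a median log2 fold change of -1.26. Likewise 0 sterol synthesis genes were higher at an unadjusted p under 0.05, and 0 were called higher by DESeq2 or limma. Sc5d, a late desaturase, had 33.3, 35 and 66.1 CPM without IL4 and 2.95, 9.6 and 10.2 CPM with it (log2 fold change -2.6, SE 0.41, edgeR adjusted p = 0.00109). Hsd17b7, a ketoreductase, had 30.5, 27.2 and 36 CPM without IL4 and 4.55, 12.6 and 8.56 CPM with it (log2 fold change -1.89, SE 0.31, edgeR adjusted p = 0.00132). The cholesterol carrier Stard4 had 38, 33.4 and 55.7 CPM without IL4 and 5.89, 9.6 and 10.2 CPM with it (log2 fold change -2.32, SE 0.28, edgeR adjusted p = 1.81e-04). Sqle, Cyp51 and Srebf2 were also lower. Hmgcs1 had 83.5, 60.6 and 124 CPM without IL4 and 51.4, 66.9 and 65.2 CPM with it (log2 fold change -0.56, edgeR adjusted p = 0.157). Dhcr7 had 119, 121 and 152 CPM without IL4 and 90.5, 115 and 119.5 CPM with it (log2 fold change -0.28, edgeR adjusted p = 0.358), and neither was called. Hmgcs1 had an edgeR adjusted p of 0.0469 with the replicate block. Sterol synthesis genes called lower numbered 17 with the replicate block, in place of 14.

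Lipid uptake and efflux genes changed in both directions. Of 22 genes of uptake, storage and binding, 8 rose and 4 fell. The fatty acid binding protein Fabp4 had 4.69, 9.48 and 11.6 CPM without IL4 and 54.9, 74.1 and 53.7 CPM with it (log2 fold change 2.84, SE 0.30, edgeR adjusted p = 8.43e-05). Lipoprotein lipase (Lpl) had 753, 1129.5 and 758 CPM without IL4 and 3341, 4649 and 4610.0 CPM with it (log2 fold change 2.26, SE 0.23, edgeR adjusted p = 5.82e-05). Of 17 LXR targets and efflux genes, 3 rose and 1 fell. The sterol exporter Abcg1 had 99.5, 36.3 and 36 CPM without IL4 and 442, 239.9 and 282 CPM with it (log2 fold change 2.47, SE 0.39, edgeR adjusted p = 0.00106). Apoe, the apolipoprotein secreted by macrophages, had 172, 65.5 and 139 CPM without IL4 and 46.6, 14.9 and 27.3 CPM with it (log2 fold change -2.08, SE 0.41, edgeR adjusted p = 0.00416). The receptor Nr1h3 (LXR alpha) had 10.6, 9.48 and 6.66 CPM without IL4 and 15.3, 24.5 and 12.5 CPM with it (log2 fold change 0.97, SE 0.30, edgeR adjusted p = 0.0413). Soat1, which esterifies cholesterol, had 153, 84.9 and 98.4 CPM without IL4 and 248, 183 and 161 CPM with it (log2 fold change 0.81, SE 0.25, edgeR adjusted p = 0.0398). Fatty acid oxidation genes hardly met the test, with 1 of 21 higher and 0 lower, and a median of 0.24. That gene was Acaa2, the last enzyme of mitochondrial beta-oxidation, at 30.1 ± 1.45 CPM without IL4 and 45.6 ± 5.97 CPM with it (SD, n = 3, log2 fold change 0.59, SE 0.19, edgeR adjusted p = 0.0436). At an unadjusted p under 0.05 2 of these fatty acid oxidation genes were lower, and DESeq2 called 0 lower and limma 0. Abcg1 changed by 3.15 without unstimulated library 1 on the log2 scale. Nr1h3 was no longer called without unstimulated library 2 or 3 or IL4 library 2 (edgeR adjusted p = 0.0969 to 0.186). Nr1h3 was not called by DESeq2 (log2 fold change 0.97, adjusted p = 0.0604). Soat1 was no longer called without unstimulated library 2 or 3 or IL4 library 1 or 2 (edgeR adjusted p = 0.0751 to 0.149). Acaa2 was no longer called without unstimulated library 1, 2 or 3 or IL4 library 2 or 3 (edgeR adjusted p = 0.0827 to 0.147). Acaa2 was not called by DESeq2 (log2 fold change 0.59, adjusted p = 0.0689). Acaa2 was not called by limma on log2 RPM (log2 fold change 0.57, adjusted p = 0.0533). Fatty acid oxidation genes called higher numbered 7 with the replicate block, 0 without unstimulated library 1, 2 or 3 or IL4 library 2 or 3 and 3 without IL4 library 1, in place of 1. Fatty acid oxidation genes called lower numbered 1 with the replicate block, in place of 0. LXR targets called higher numbered 5 with the replicate block and 1 without unstimulated library 2 or 3 or IL4 library 2, in place of 3. LXR targets called lower numbered 3 with the replicate block, 2 without IL4 library 1 and 2 with both libraries of mouse 1 left out, in place of 1.

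Of 17 genes of prostaglandins, leukotrienes and lipoxygenases, 7 rose and 7 fell. Ptgs1 rose, as given above. Hpgds, which makes prostaglandin D2, had 644, 681 and 579.5 CPM without IL4 and 150.5, 163 and 199 CPM with it (log2 fold change -1.89, SE 0.18, edgeR adjusted p = 3.34e-05). Hpgd, which degrades prostaglandins, had 21.1, 14 and 13.8 CPM without IL4 and 2.14, 3.64 and 2.3 CPM with it (log2 fold change -2.61, SE 0.31, edgeR adjusted p = 1.70e-04), so that an enzyme of synthesis and one of breakdown both fell. Thromboxane synthase (Tbxas1) had 88.9, 85.3 and 76.7 CPM without IL4 and 197, 201 and 192 CPM with it (log2 fold change 1.23, SE 0.16, edgeR adjusted p = 2.66e-04). It overlaps Hipk2, which held 2290 reads against its 2819 and also rose, so the rise of Tbxas1 is uncertain. Pla2g7, which degrades platelet-activating factor, had 228, 107 and 75.5 CPM without IL4 and 333, 142 and 101 CPM with it (log2 fold change 0.49, edgeR adjusted p = 0.545). Pla2g15 had 251, 363 and 379.5 CPM without IL4 and 207, 255 and 320.0 CPM with it (log2 fold change -0.34, edgeR adjusted p = 0.329). Pla2g7 changed by -0.18 without IL4 library 1 and 1.08 without unstimulated library 1 on the log2 scale. Pla2g7 had an edgeR adjusted p of 0.0213 with the replicate block.

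Among 41 nuclear genes of oxidative phosphorylation and the TCA cycle, 1 rose and 0 fell, with a median of 0.25, and the gene was Suclg1, a subunit of succinyl-CoA ligase, at 106, 115 and 99.4 CPM without IL4 and 172, 154 and 138 CPM with it (log2 fold change 0.54, SE 0.17, edgeR adjusted p = 0.0414). The ATP synthase beta subunit, Atp5b, had 621, 592 and 583 CPM without IL4 and 684, 842 and 889 CPM with it (log2 fold change 0.43, edgeR adjusted p = 0.10). Cox6a1 had 891, 904 and 995 CPM without IL4 and 1077, 1193 and 966 CPM with it (log2 fold change 0.21, edgeR adjusted p = 0.437). Likewise 0 oxidative phosphorylation genes were lower at an unadjusted p under 0.05, and 0 were called lower by DESeq2 or limma. Of 23 genes of glucose uptake, glycolysis and the pentose phosphate pathway, 5 rose and 2 fell. Pfkp, the platelet type of phosphofructokinase, had 146, 110.0 and 115 CPM without IL4 and 467, 330.0 and 329 CPM with it (log2 fold change 1.6, SE 0.20, edgeR adjusted p = 2.49e-04). Slc16a1, a lactate transporter, had 7.27, 7.42 and 9.37 CPM without IL4 and 23, 18.2 and 20.7 CPM with it (log2 fold change 1.36, SE 0.22, edgeR adjusted p = 0.00124). The aldolase Aldoc had 108, 98.5 and 209 CPM without IL4 and 6.43, 22.5 and 31.6 CPM with it (log2 fold change -2.8, SE 0.47, edgeR adjusted p = 0.00147). The main aldolase of these cells, Aldoa, had 1220.2, 1528 and 1426 CPM without IL4 and 1459, 1271 and 1451 CPM with it (log2 fold change 0.00, edgeR adjusted p = 0.994). Suclg1 was no longer called without unstimulated library 1, 2 or 3 or IL4 library 1, 2 or 3 (edgeR adjusted p = 0.050 to 0.123). Suclg1 was not called with both libraries of mouse 1 left out (log2 fold change 0.45, adjusted p = 0.143). Atp5b had an edgeR adjusted p of 0.0437 with the replicate block. Oxidative phosphorylation genes called higher numbered 9 with the replicate block, 0 without unstimulated library 1 or 2 or IL4 library 1, 2 or 3 and 0 with both libraries of mouse 1 left out, in place of 1. Glycolytic genes called higher numbered 8 with the replicate block, in place of 5. Glycolytic genes called lower numbered 5 with the replicate block and 1 without unstimulated library 2 or 3 or IL4 library 1, in place of 2.

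Of 24 amino acid transporters and stress genes, 12 rose and 4 fell, with a median log2 fold change of 0.94. Psat1, an enzyme of serine synthesis, had 41.8, 38.3 and 40.7 CPM without IL4 and 165, 165 and 102 CPM with it (log2 fold change 1.84, SE 0.22, edgeR adjusted p = 1.49e-04). Slc43a2, which carries large neutral amino acids, fell from 616, 447 and 395 CPM to 109, 119 and 133 CPM (log2 fold change -2.02, SE 0.20, edgeR adjusted p = 5.82e-05). Slc38a2 had 164, 120.3 and 127 CPM without IL4 and 183, 98.6 and 124 CPM with it (log2 fold change -0.02, edgeR adjusted p = 0.968). Genes of the unfolded protein response and secretory pathway had 10 of 23 higher and 0 lower, with a median of 0.74. Likewise 0 unfolded protein response genes were lower at an unadjusted p under 0.05, and 0 were called lower by DESeq2 or limma. The disulfide isomerase Pdia4 had 203, 211 and 215 CPM without IL4 and 869.7, 659 and 575 CPM with it (log2 fold change 1.75, SE 0.19, edgeR adjusted p = 9.14e-05). The chaperone component Sdf2l1 had 226, 148 and 189 CPM without IL4 and 746, 544 and 381 CPM with it (log2 fold change 1.57, SE 0.25, edgeR adjusted p = 0.00124). The lectin chaperone calreticulin (Calr) had 1465, 1288 and 1186 CPM without IL4 and 3181, 2608 and 2475 CPM with it (log2 fold change 1.07, SE 0.18, edgeR adjusted p = 0.00155). Hspa5, Hsp90b1, Manf and Hyou1 rose with them. Xbp1, a transcription factor of this response, had 369.8, 291 and 252 CPM without IL4 and 439, 313 and 282 CPM with it (log2 fold change 0.18, edgeR adjusted p = 0.642). Unfolded protein response genes called higher numbered 16 with the replicate block, in place of 10.

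Iron and lysosomal genes moved in part. Of 15 iron and heme genes 4 rose and 4 fell. The transferrin receptor Tfrc, which brings iron in, had 145, 124 and 85.3 CPM without IL4 and 258, 322 and 394 CPM with it (log2 fold change 1.46, SE 0.23, edgeR adjusted p = 0.00108). Ferroportin (Slc40a1), which lets it out, had 259.8, 204 and 214 CPM without IL4 and 39.9, 42 and 30.0 CPM with it (log2 fold change -2.6, SE 0.20, edgeR adjusted p = 1.08e-05). The endosomal metal transporter Slc11a1 (NRAMP1) had 745, 683 and 569.7 CPM without IL4 and 343, 324 and 323 CPM with it (log2 fold change -1.01, SE 0.17, edgeR adjusted p = 0.00135). Of 39 lysosomal genes, 7 rose and 1 fell. Prosaposin (Psap), the precursor of the saposins, took a large share of reads at 3191, 3337 and 4008 CPM without IL4 and 12902, 15635 and 14112 CPM with it (log2 fold change 2.02, SE 0.19, edgeR adjusted p = 3.42e-05). Gpnmb, a glycoprotein of lysosomes in lipid-laden cells, had 3287, 3214 and 2463 CPM without IL4 and 6527, 5933 and 5068 CPM with it (log2 fold change 0.97, SE 0.19, edgeR adjusted p = 0.00422). The proton pump subunit Atp6v1b2 had 207, 118 and 136 CPM without IL4 and 413, 362 and 363 CPM with it (log2 fold change 1.3, SE 0.22, edgeR adjusted p = 0.00152). Oxidase and antioxidant genes were higher in 6 of 23 and lower in 4. Glutathione peroxidase 1 (Gpx1) had 1960.1, 2244 and 1899.9 CPM without IL4 and 7552, 7754 and 6324 CPM with it (log2 fold change 1.83, SE 0.18, edgeR adjusted p = 5.01e-05). Superoxide dismutase 1 (Sod1) had 702, 852 and 923 CPM without IL4 and 324, 515 and 445 CPM with it (log2 fold change -0.95, SE 0.20, edgeR adjusted p = 0.00691). Lysosomal genes called lower numbered 3 with the replicate block, 0 without IL4 library 2 and 2 without IL4 library 1, in place of 1. Oxidase and antioxidant genes called higher numbered 3 without unstimulated library 2, in place of 6. Oxidase and antioxidant genes called lower numbered 7 with the replicate block, 1 without IL4 library 2, 2 without unstimulated library 1 or IL4 library 3 and 2 with both libraries of mouse 1 left out, in place of 4.

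Of 34 genes of DNA replication and mitosis, 22 fell and 0 rose by edgeR, with a median log2 fold change of -1.06. Likewise 0 DNA replication and mitosis genes were higher at an unadjusted p under 0.05, and 0 were called higher by DESeq2 or limma. Thymidine kinase (Tk1) had 32.1, 44.5 and 44.9 CPM without IL4 and 5.62, 16.2 and 13.2 CPM with it (log2 fold change -1.81, SE 0.33, edgeR adjusted p = 0.00244). The helicase Hells had 19, 21 and 15.3 CPM without IL4 and 6.43, 6.29 and 5.6 CPM with it (log2 fold change -1.58, SE 0.23, edgeR adjusted p = 6.66e-04). The mitotic kinase Plk1 had 29.6, 30.1 and 26.1 CPM without IL4 and 6.69, 16.2 and 8.23 CPM with it (log2 fold change -1.47, SE 0.30, edgeR adjusted p = 0.00484). Mki67, Top2a, Cdk1 and Ccna2 were also lower. Mcm3, a subunit of the replicative helicase, had 46.2, 45.3 and 39 CPM without IL4 and 17.9, 21.5 and 26.7 CPM with it (log2 fold change -0.98, SE 0.21, edgeR adjusted p = 0.00588). Its partner Mcm6 had 96, 176 and 152 CPM without IL4 and 50.9, 96.3 and 88.6 CPM with it (log2 fold change -0.85, edgeR adjusted p = 0.0534). Of 25 G1 and growth control genes, 2 rose and 4 fell. Cyclin D1 (Ccnd1) had 616, 527 and 549 CPM without IL4 and 126, 225 and 266 CPM with it (log2 fold change -1.46, SE 0.25, edgeR adjusted p = 0.00182). Cdk2 had 83.1, 113 and 70.8 CPM without IL4 and 37.2, 43.4 and 49.7 CPM with it (log2 fold change -1.03, SE 0.22, edgeR adjusted p = 0.0058). Cyclin D3 (Ccnd3) had 129, 106 and 122 CPM without IL4 and 46.1, 41.4 and 72.1 CPM with it (log2 fold change -1.16, edgeR adjusted p = 0.00351). Ccnd3 overlaps Bysl on the other strand, which held 880 reads against 1817 of Ccnd3. Tk1 likewise overlaps Afmid, which held 175 reads against 537 of Tk1. The CDK inhibitor Cdkn1a had 1939, 1775 and 1445 CPM without IL4 and 1713, 1498 and 1206 CPM with it (log2 fold change -0.22, edgeR adjusted p = 0.501). In bulk RNA, fewer cells of a type and less RNA per cell cannot be told apart, here and for every gene above. Mcm6 had an edgeR adjusted p of 2.25e-04 with the replicate block. DNA replication and mitosis genes called lower numbered 32 with the replicate block, in place of 22. They numbered 8 without unstimulated library 2, 11 without unstimulated library 3 and 14 without IL4 library 3. G1 genes called higher numbered 0 without unstimulated library 2 or 3 or IL4 library 2, 1 without unstimulated library 1 or IL4 library 1 and 1 with both libraries of mouse 1 left out, in place of 2. G1 genes called lower numbered 12 with the replicate block, in place of 4.

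Genes of macrophage identity were lower in 10 of 23 and higher in 5, and their summed level was 59178 to 72722 CPM without IL4 and 43321 to 45328 CPM with it. Lysozyme 2 (Lyz2), one of the genes with the most reads in both groups, had 48606, 43435 and 35895 CPM without IL4 and 14667, 17119.9 and 14735 CPM with it (log2 fold change -1.46, SE 0.20, edgeR adjusted p = 3.77e-04). Lyz2 made up most of the sum of identity genes without IL4, and the fall of that sum was the fall of Lyz2. The sum of the other identity genes did not fall with IL4, though such a sum is led by its most abundant members. The median log2 fold change of the 23 tested identity genes was -0.49. Adgre1 (listed as Emr1), the F4/80 antigen, had 417, 593 and 298 CPM without IL4 and 197, 155 and 185 CPM with it (log2 fold change -1.28, SE 0.24, edgeR adjusted p = 0.00316). Beta actin (Actb) had 17194, 26038 and 21492 CPM without IL4 and 16536, 14681 and 16978 CPM with it (log2 fold change -0.43, edgeR adjusted p = 0.18). Thymosin beta 4 (Tmsb4x), which binds actin monomers, had 8347, 10764 and 9647 CPM without IL4 and 5237, 5781 and 4756 CPM with it (log2 fold change -0.87, SE 0.18, edgeR adjusted p = 0.00606). Itm2b, a membrane protein, had 5629, 4184 and 5081 CPM without IL4 and 2472, 2274 and 2827 CPM with it (log2 fold change -0.98, SE 0.19, edgeR adjusted p = 0.0034).

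Markers of other cell types that marrow cultures can hold were checked as well. Of 24 defining markers with 0 reads in all 6 libraries, Ly6g, Mpo and Elane mark neutrophils, Cd79a B cells, Cd3e T cells, Epx and Prg2 eosinophils, Cpa3 mast cells, Flt3 and Xcr1 dendritic cells and Pdgfra fibroblasts. As an expressed gene can be listed at 0 reads here, these zeros do not show that such cells were absent. The summed level of monocyte genes, with 4 of 7 lower and 1 higher, was 397 to 512 CPM without IL4 and 109 to 277 CPM with it. For neutrophil genes, with 1 of 2 lower, it was 26.8 to 40.0 CPM without IL4 and 15.5 to 22.5 CPM with it. Dendritic cell genes, with 3 of 6 higher and 2 lower, summed to 953 to 1032 CPM without IL4 and 2969.7 to 4782 CPM with it, and eosinophil genes, with 2 of 2 higher (Ccr3 one of them), summed to 1.97 to 4.95 CPM without IL4 and 24 to 47.9 CPM with it. With IL4, Itgax made up most of the dendritic sum and Ccr3 most of the eosinophil sum. B cell genes, with 1 of 2 higher, summed to 223 to 376 CPM without IL4 and 454 to 521 CPM with it. Nearly all of this was Blnk, which was not called, at 331, 370 and 218 CPM without IL4 and 492, 449 and 434 CPM with it. The 1 tested T and NK cell gene, Il7r, a cytokine receptor chain, had 16.4, 61 and 28.1 CPM without IL4 and 480.1, 431 and 363 CPM with it (log2 fold change 3.63, SE 0.39, edgeR adjusted p = 8.61e-05). Sums led by a single gene are no measure of a cell type. Megakaryocyte genes, with 1 of 3 higher and 1 lower, summed to 317 to 594 CPM without IL4, nearly all of it Pf4, and 142 to 225 CPM with it. Endothelial genes, with 1 of 2 higher, summed to 20.4 to 24.7 CPM without IL4 and 65.9 to 129 CPM with it. Some defining markers had reads in either group, with Siglecf of eosinophils at 0 reads without IL4 and 31 with it, Zbtb46 of dendritic cells at 0 and 13, S100a8 of neutrophils at 3 and 6, Cdh5 of endothelium at 14 and 19 and Kdr of endothelium at 176 and 112. Vwf, the von Willebrand factor counted in both of these lists, had 1.88, 1.65 and 2.71 CPM without IL4 and 60.8, 49 and 113 CPM with it (log2 fold change 5.1, SE 0.40, edgeR adjusted p = 1.26e-05). Erythroid genes summed to 0.824 to 1.73 CPM without IL4 and 2.63 to 7.23 CPM with it and fibroblast genes to 0.824 to 2.82 CPM without IL4 and 0.329 to 1.34 CPM with it. Immediate early and heat shock genes, which also respond to handling, were higher in 6 of 9, with a sum of 421 to 468 CPM without IL4 and 2211 to 2484 CPM with it. Among them Atf3 had 155, 220.1 and 212 CPM without IL4 and 1666, 1636 and 1453 CPM with it (log2 fold change 3.02, SE 0.20, edgeR adjusted p = 3.67e-06). The part of these genes in the results above was not tested. Il7r changed by 4.26 without unstimulated library 2 on the log2 scale. B cell genes called higher numbered 2 with the replicate block, in place of 1. Dendritic cell genes called lower numbered 1 without unstimulated library 2 or 3 or IL4 library 1 or 2, in place of 2. Neutrophil genes called lower numbered 2 with the replicate block, in place of 1.

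The response was set beside maturation, measured in the other 9 libraries as mature against immature macrophages, for the 8833 genes tested in both tables. Over all 13359 genes tested there, 7.52% were higher and 7.38% lower in mature macrophages, and of the 8833 genes 8.71% were higher and 6.53% lower. Among 896 genes that rose with IL4, 147 (16.4%) were higher and 90 (10.0%) lower in mature macrophages, and among 909 that fell with IL4, 125 (13.8%) were higher and 106 (11.7%) lower. Seen from maturation, IL4 raised 19.1% and lowered 16.3% of the 769 genes that were higher in mature cells, and it raised 15.6% and lowered 18.4% of the 577 that were lower. Genes not called with IL4 were higher in mature cells in 7.07% and lower in 5.42%. The tables were normalized separately, so only directions are compared.

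Individual genes fell into each of the 4 combinations, with 46 of the named genes called in both comparisons. For 11 of them IL4 raised a gene that was lower in mature than in immature macrophages. F7 was one of these, with 155 reads in the immature libraries and 0 in the mature ones, a fall of at least 57.9-fold (edgeR adjusted p = 5.19e-04). Cd74 changed by -5.48 in maturation and 4.01 with IL4, H2-Ab1 by -7.0 and 4.7, Adam19 by -6.27 and 3.35, and Irf4 by -2.31 and 4.09 (all log2, edgeR). Another 13 rose in both. Itgax changed by 4.2 and 6.56, Flt1 by 3.93 and 6.87, and Mmp12 by 3.83 and 5.3. Among 11 genes that were higher in mature cells and fell with IL4, Tnf changed by 3.32 and -2.13, Itga8 by 3.22 and -4.33, Marco by 2.93 and -4.6, and Ccnd1 by 4.63 and -1.46. A further 11 fell in both, among them Fads2 by -7.32 and -5.05 and F13a1 by -8.48 and -4.43. Cd74 changed by 4.64 without unstimulated library 2, H2-Ab1 changed by 3.57 without IL4 library 2, 4.01 without unstimulated library 1 and 5.59 without unstimulated library 2 and Itgax changed by 7.44 without unstimulated library 2 on the log2 scale. Flt1 changed by 7.7 without unstimulated library 3, Mmp12 changed by 6.17 without unstimulated library 2 and Itga8 changed by -5.2 without IL4 library 3 on the log2 scale. Marco changed by -3.76 without unstimulated library 1, Fads2 changed by -4.41 without IL4 library 1 and -6.88 without IL4 library 2 and F13a1 changed by -6.33 without IL4 library 3 and -1.93 without unstimulated library 3 on the log2 scale. F13a1 was no longer called without unstimulated library 3 or IL4 library 2 (edgeR adjusted p = 0.0728 to 0.0955).

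**Figure D5:**
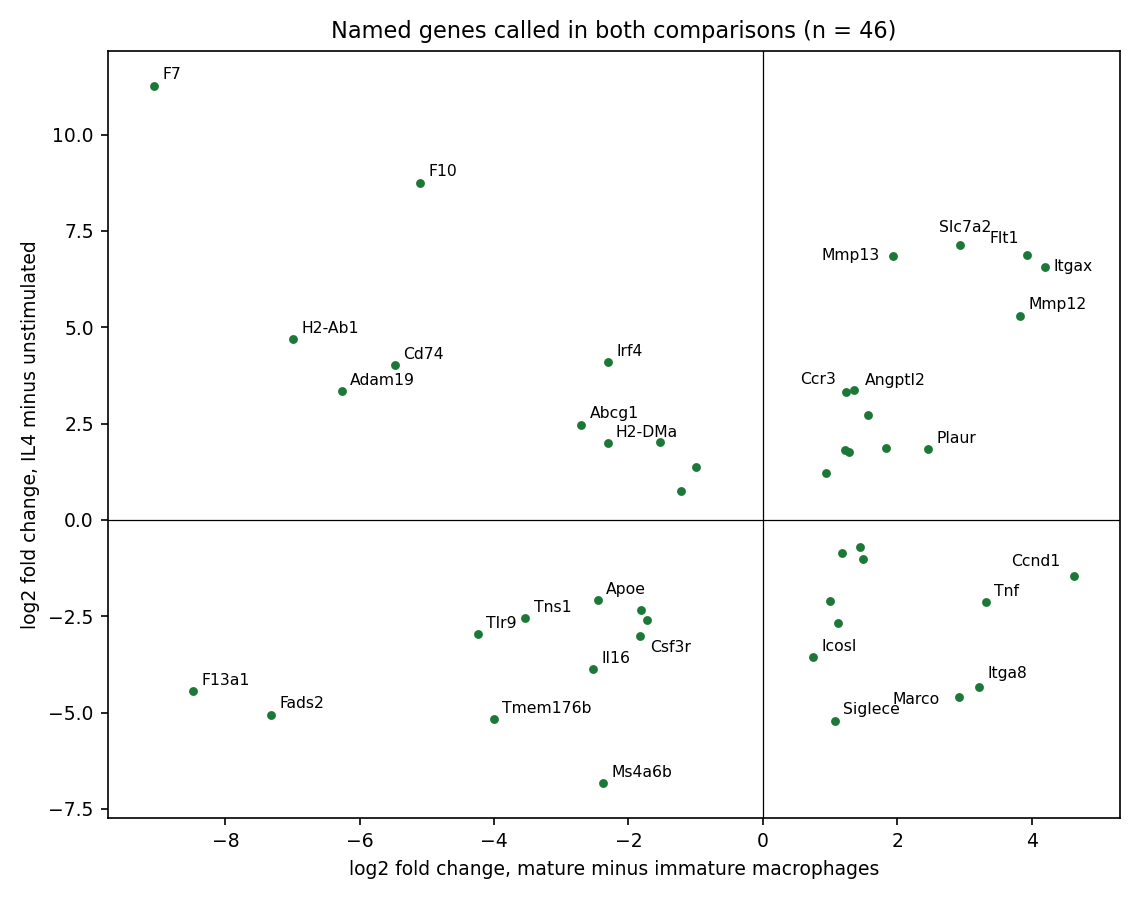
Log2 fold change with IL4 (vertical axis) against that of mature over immature macrophages (horizontal axis) for the 46 named genes called in both comparisons. The quadrants hold 11 genes at the upper left, 13 at the upper right, 11 at the lower left and 11 at the lower right. F7 has 0 reads in the mature and in the unstimulated libraries, so its place on both axes is a fitted value that depends on a small added count.

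Libraries of mouse 1 stood apart within their groups. Unstimulated library 1 was at least 2-fold above both other unstimulated libraries for 21 of the 918 genes that fell, against 6 for library 2 and 7 for library 3. Among treated libraries the corresponding counts over the 937 genes that rose were 11, 9 and 1. The direction of change was the same in all 3 mouse numbers for 937 of 937 genes that rose and 916 of 918 that fell. These genes were called on the same libraries, so such agreement follows nearly from the selection and is no separate test. With both libraries of mouse 1 left out, 855 genes rose and 803 fell. The p-values measure the spread between these 3 mouse numbers per group.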

How the data were processed

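RNA of 3 unstimulated and 3 IL4-treated libraries was measured by Ion Torrent sequencing, per the labels' protocols from 1 µg of total RNA taken by column with DNase. The submitters' processing notes name HISAT2 2.0.5, edgeR with no version, and, as genome builds, GRCm39.p6 and GRCm38.p6. Which program counted the reads, and with which strand setting, is not given in the sources used here. Raw read counts were deposited by the authors for 25965 genes of these 6 libraries, of which 11378 had a read, and a separate count table for the 9 libraries of differentiation. The authors' deposited log2 RPM cover the same genes and hold the same sorted values in each library, as values brought to a common distribution do. A deposited list by the authors gives the genes with an FDR, an adjusted p-value, below 0.05. Positions are those of the deposited table. Of the 8936 genes tested, 8897 had an identifier in GENCODE M21 (GRCm38), 8896 of them at an overlapping place, and 5286 had the same start and end.

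The main test was edgeR's quasi-likelihood test (edgeR 4.0.16 under R 4.3.3; glmQLFit, then glmQLFTest) with no covariate, after TMM scaling and a filterByExpr filter by group at a minimum count of 10. Benjamini-Hochberg adjustment covered every gene tested, and an adjusted p under 0.05 was a call. The 9 libraries of differentiation were fitted in the same way in 1 fit. The procedure was tested on simulated data with known changes. Levels are CPM with TMM-scaled totals. A group at 0 reads was set to 3 reads in all for a lower bound of the fold. For 1 to 3 reads the pooled fold has an exact 95% interval, which covers counting error only.

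The mouse numbers in the sample titles pair the libraries. Deviations from the group mean correlated at 0.591, 0.175 and 0.413 across genes for libraries of the same number, against -0.487 to 0.247 for others. The 0.247, of unstimulated library 3 with IL4 library 2, lay above the 0.175 of mouse 2. Deviations within a group cancel out, so these values are not independent of each other. The main fit leaves out the pairing by mouse number, as no test with a block is stated in the sources used here. Blocked counts stand beside it. A gene given as not called is so in the main fit, and some such genes, Il1rn and Mcm6 among them, were called with the block.

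The 55 gene lists and the genes named were chosen with earlier results of these data known. Called genes with a symbol, a change of 2-fold or more, non-overlapping groups and 10 CPM or more in the higher group were ranked by log2 fold change, and the 12 at each end were named. Each of 41 lists by role added at most 4 called genes of 5 CPM or more, taken by p, and at most 2 uncalled ones, taken by CPM. The top member by CPM of each other list, 15 textbook genes and the 10 most abundant genes of each group completed the rule. A few list members, given only by direction, were picked after their values were seen. A few of the genes so chosen or listed are not reported here. RefSeq promoters were matched by identifier or symbol. Alternatives were the replicate block, RLE scaling, 2 other filters, a fold threshold, DESeq2 1.42.0, limma 3.58.1 on the deposited log2 RPM, and leaving out each library.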

Additional observations from a re-analysis of the deposited data

How the results depend on the processing

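The count of genes that rose with IL4 was 937 and that of genes that fell was 918. With the replicate block they were 1447 and 1436, with a test against a 1.5-fold change (glmTreat) 472 and 420, and with an adjusted p under 0.001 they were 313 and 207. The block added calls and lost none, while both stricter tests give fewer by construction. Leaving out 1 library gave 698 to 880 genes that rose and 677 to 857 that fell. The lowest counts came without IL4 replicate 2, where 679 and 637 of the calls remained. RLE scaling gave 923 and 931, no filter on low counts 1086 and 1045, a filter of 1 CPM 1013 and 982, DESeq2 970 and 906 and limma on log2 RPM 870 and 967. RLE moved the median of all genes from 0.0062 to -0.0001 on the log2 scale. None of the 170 named genes that were called changed direction under these settings, while 21 of the 78 that were not called changed sign under at least 1, to log2 fold changes of at most 0.243 in size. The genes called in mature against immature macrophages numbered 1991, and 1547 with the replicate block. With 2408531 to 4214266 reads per library, genes near 10 reads carry wide counting error, and folds against groups at 0 reads are bounds. Here 477 genes at 10 CPM or more in other mature macrophages are at 0 reads, and a change of these cannot be seen.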
